A study of Mus musculus with 24 samples.

Results

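Dexamethasone (Dex), a synthetic glucocorticoid, was compared with its ethanol vehicle in wild-type mouse embryonic fibroblasts that received no other agent. The comparison used 6 of the 24 libraries of the series, picked by their labelled genotype and treatment: 3 from cells given 1 uM Dex for 16 h, and 3 from cells given ethanol for as long. The fibroblasts were grown from male C57BL/6 embryos taken at day 13.5, without the head and inner organs, and spent 7 days in high-glucose medium with serum. Both groups carried the genotype label GR wt / wt, an unaltered glucocorticoid receptor (GR). Other contrasts served for comparison, with 6 libraries each. The first was the same treatment in cells labelled GR Zn/Zn, which carry a mutant receptor. The second was Dex in wild-type cells that also received bacterial lipopolysaccharide (LPS) at 100 ng/ul for 6 h, set against LPS with ethanol. The labels do not state whether replicates were different embryos or cultures, or whether embryos were pooled. The p-values therefore measure the spread between these libraries, which may be technical.

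Ligand-bound GR moves into the nucleus, where it binds as a dimer to palindromic DNA elements and also lowers the activity of other factors, chiefly AP-1 and NF-kB. In fibroblasts glucocorticoids are known for damping cytokine production and for altering collagen, hyaluronan and growth factor output. The genes described here are grouped by role, from secreted factors and their receptors through matrix and adhesion to metabolism and ion transport.

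Because GR acts on DNA, the promoters of the genes that rose were searched for the core of its element, GNACANNNTGTNC, where N is any base. The motif is its own reverse complement, so a search of 1 strand covers both. RefSeq promoters on GRCm38.p6, from 250 bases before to 50 bases after each annotated start, were matched by symbol to 11031 of the 15221 tested genes. The core was present in 45 of these (0.408%). It was present in 10 of the 161 matched genes that rose at least 2-fold (6.21%), in 14 of 929 genes that rose by any amount (1.51%), in 30 of 9530 genes that were not called (0.315%), and in 1 of 572 genes that fell (0.175%). None of the 74 matched genes that fell at least 2-fold held it. Sites from genes that rose at least 2-fold are shown because they carry this difference, each with its log2 fold change. They are printed 5′ to 3′ on the strand of the gene, with the core in capitals and 12 bases on either side.
Fam107a (chr14:8309873-8309909, minus strand, log2 5.26): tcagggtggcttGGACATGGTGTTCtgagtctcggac
Map7d2 (chrX:159459123-159459159, plus strand, log2 4.58): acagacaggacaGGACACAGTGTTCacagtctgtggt
Slc10a6 (chr5:103629542-103629578, minus strand, log2 4.31): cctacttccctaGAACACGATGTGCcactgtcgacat
Serpina3n (chr12:104406618-104406654, plus strand, log2 3.02): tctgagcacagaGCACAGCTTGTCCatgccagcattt
Mt1 (chr8:94178983-94179019, plus strand, log2 2.03): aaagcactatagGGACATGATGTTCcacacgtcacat
Sptb (chr12:76710532-76710568, minus strand, log2 1.76): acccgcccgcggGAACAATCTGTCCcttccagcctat
Suox (chr10:128673940-128673976, minus strand, log2 1.49): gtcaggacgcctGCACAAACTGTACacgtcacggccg
Sgk1 (chr10:21993690-21993726, plus strand, log2 1.48): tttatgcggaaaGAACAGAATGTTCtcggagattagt
Map3k6 (chr4:133240625-133240661, plus strand, log2 1.08): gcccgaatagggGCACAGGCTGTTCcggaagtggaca
Fam107a encodes an actin-bundling stress protein, Map7d2 a microtubule-associated protein, Slc10a6 a transporter of sulphated steroids, and Mt1 a metal-binding metallothionein. Serpina3n is a secreted serine protease inhibitor, Sptb a spectrin of the membrane skeleton, Suox sulphite oxidase, Sgk1 a kinase that regulates ion transport, and Map3k6 a kinase of the stress pathway. The call of Sptb was lost from unstranded counts (log2 0.45, adjusted p = 0.129). In Fam107a, Map7d2 and Mt1 the left arm of the core read GGACA and the right arm TGTTC. Among the sites shown only that of Sgk1 carried the arms GAACA and TGTTC, which mirror each other. These sites lay between 188 bases before and 10 bases after the annotated start.

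The AP-1 element TGANTCA, also its own reverse complement, was searched for in the same windows. It was present in 720 of all 11031 matched promoters (6.53%) and in 572 of 9530 that were not called (6%). Of those that fell, 15 of 74 at least 2-fold (20.3%) and 69 of 572 by any amount (12.1%) held it. Of those that rose, 21 of 161 at least 2-fold (13%) and 79 of 929 by any amount (8.5%) held it. The sites of genes among the 20 largest falls are shown, with the element in capitals and up to 12 bases on either side. Cldn4 encodes a tight junction protein and had 2 such sites, and Il6 and Il11 encode cytokines.
Cldn4 (chr5:134947156-134947184, minus strand, log2 -1.63): tctaggctggTGACTCAgtgtctgtgtcc
Cldn4 (chr5:134947074-134947104, minus strand, log2 -1.63): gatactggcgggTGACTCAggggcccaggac
Il6 (chr5:30012864-30012883, plus strand, log2 -1.56): cTGAGTCActtttaaagaaa
Il11 (chr7:4778221-4778251, minus strand, log2 -1.48): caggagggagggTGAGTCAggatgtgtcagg
9930111J21Rik2 (chr11:49051405-49051435, minus strand, log2 -1.48): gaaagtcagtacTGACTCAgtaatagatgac
These motif counts describe letters in a window and were not tested. The lists of genes in them were set by the Dex comparison itself.

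Depth was similar across the 6 libraries, with 19.5 to 25.1 M reads on genes, and between 19584 and 20101 genes had at least 1 read. Gene levels below are in CPM, counts per 1000000 reads on genes after TMM scaling. For a library with no read of a gene the upper limit is 3 reads, equal to 0.12 to 0.154 CPM, and this limit covers counting error only. In a principal component analysis of the 6 libraries the first component took 56.9% of the variance, with all Dex libraries on one side and all vehicle libraries on the other. The second carried 12.2%, with Dex replicate 3 at 18.9 and the other Dex libraries at -10.2 and -10.6. The 4 response genes named with the comparison (Fkbp5, Tsc22d3, Zbtb16 and Per2) summed to 68.2 to 68.6 CPM with vehicle and to 447 to 468 CPM with Dex, and all 4 rose. The 14 fibroblast markers summed to 33369 to 35366 CPM with vehicle and 33691 to 35010.3 CPM with Dex, with 2 called higher and 3 lower. Of the other cell types, the 10 leukocyte markers summed to 89.0 to 91.7 and 70.1 to 79.2 CPM, the 10 liver markers to 80.1 to 172 and 24.8 to 28.6 CPM with none called, the 8 adipocyte markers to 36.3 to 41.8 and 54.1 to 56.5 CPM, and the 8 epithelial markers to 41.6 to 44.1 and 33.5 to 36.0 CPM. Each of the 10 liver markers was nevertheless lower in every Dex library than in any vehicle library, at a median log2 of -1.99. A fit of only the 6 libraries called 4 of them lower. Their median log2 with Dex was -2.73 in the receptor mutant and 1.86 under LPS. Among the adipocyte markers Fabp4 and Cebpa were called higher, Fabp4 from 4.43, 3.31 and 3.65 to 21.1, 21.2 and 19.25 CPM. Lpl, Pparg and Car3 were not called, and Adipoq, Plin1 and Cidec had almost no reads. Of the epithelial markers Krt18 and Cldn4 were called lower. Krt19, at 27.0, 27.1 and 27.2 and 25.3, 25.4 and 25.9 CPM, was not called. The marker sums and these values are per library total, without TMM scaling. The erythroid markers summed to 0.170 to 0.197 and 0 to 0.0798 CPM. In such bulk RNA, fewer cells of a type and less RNA per cell cannot be told apart.

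Of 15221 genes tested, 2003 passed the test at an adjusted p below 0.05, which is 13.2%. With Dex 1205 were higher (7.92%) and 798 were lower (5.24%), at median log2 fold changes of 0.45 and -0.46. These shares are the comparison for every list count below. A change of at least 2-fold was seen in 224 higher and 126 lower genes. The test was edgeR's quasi-likelihood test on all 24 libraries with Benjamini-Hochberg adjustment. Every log2 fold change is followed by its standard error (SE) and adjusted p where these are given. This SE is approximate and can fail for values near 0. For Fam167a it was 0.27 for the Dex effect without LPS and 0.20 under LPS, but 21.9 for their difference of log2 0.16. In 1996 of the 2003 called genes the 3 Dex and the 3 vehicle libraries did not overlap, which also held for 40.9% of all tested genes. Scaling by library totals alone gave 965 higher and 1146 lower genes and moved the median of all genes to -0.05, and no called member of the lists described below changed sign with it. A fit of only the 6 libraries called 4659 genes, and a fit without 5 libraries of other groups that stood apart from their replicates called 4330.

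**Figure D1:**
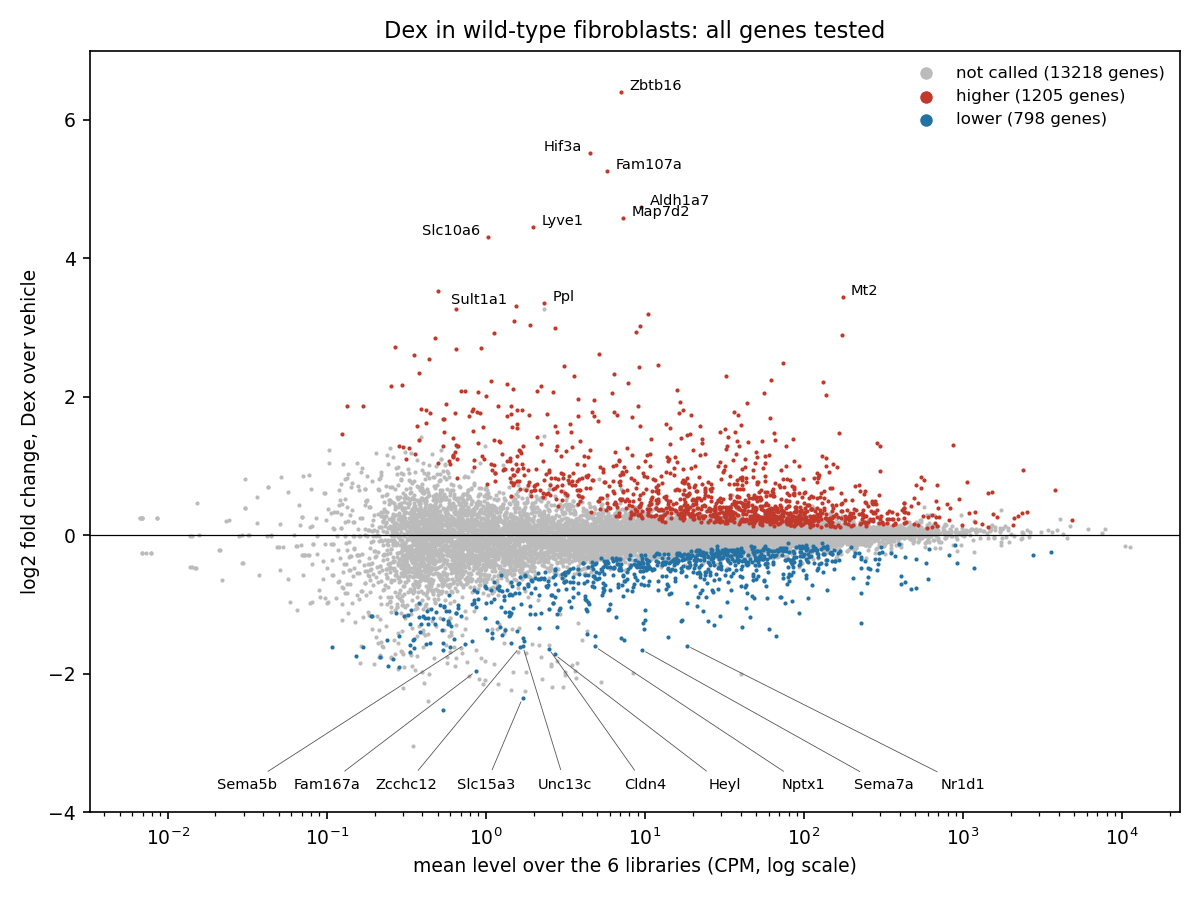
Log2 fold change with Dex (y axis) against mean level in CPM over the 6 libraries (x axis, log scale) for all 15221 genes tested. The 1205 genes called higher and the 798 called lower are coloured, and the labelled genes are the 10 largest rises and the 10 largest falls named in the text.

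Among the largest rises were genes that were nearly silent in vehicle cultures. Hif3a (ENSMUSG00000004328, chromosome 7, 17031507 to 17062427), which encodes an inhibitory partner of the hypoxia-inducible factors, was at 0.237, 0.0437 and 0.0827 CPM in the vehicle libraries and at 8.64, 8.43 and 9.64 CPM in the Dex libraries (log2 5.52 ± 0.39, adjusted p = 3.8e-10). Lyve1 (ENSMUSG00000030787, chromosome 7, 110850607 to 110863239), the hyaluronan receptor known from lymphatic endothelium, went from 0.0950, 0.131 and 0.0827 to 2.89, 4.46 and 4.31 CPM (log2 4.45 ± 0.31, adjusted p = 3.9e-10). Endothelial markers as a list summed to 30.9 to 33.7 CPM with vehicle and 36.3 to 39.4 CPM with Dex, with 1 of 6 tested called higher, and their part in this rise was not tested. Slc10a6, shown above with its site, had 2 reads over the 3 vehicle libraries and 141 over the 3 Dex libraries, a 67.7-fold ratio per counted read (exact 95% interval 18.4 to 564, counting error only). Each of these 3 genes was higher in every Dex library than in any vehicle library.

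Other genes of this group act in muscle, blood pressure and conjugation. Myocd (ENSMUSG00000020542, chromosome 11, 65176561 to 65269989), the cofactor of SRF that drives smooth muscle genes, went from 1.61, 2.402 and 1.90 to 16.5, 14.7 and 15.6 CPM (log2 2.93 ± 0.19, adjusted p = 1.36e-10). Ace, which converts angiotensin I, went from 0.665, 0.655 and 0.331 to 5.51, 4.75 and 4.46 CPM (log2 3.002 ± 0.25, adjusted p = 5.49e-09). Sult1a1, a phenol sulphotransferase, went from 0.0950, 0.306 and 0.248 to 2.73, 2.85 and 3.02 CPM (log2 3.31 ± 0.58, adjusted p = 0.000311). Sult1a1 had few reads in the vehicle libraries. Scel and Ppl, proteins of the cornified envelope of skin, reached 2.09, 2.68 and 3.43 and 4.90, 3.80 and 4.20 CPM with Dex from 0.475, 0.0873 and 0.207 and 0.285, 0.262 and 0.496 CPM with vehicle. The summed epithelial markers were lower with Dex, as given above. Ablim3, an actin-binding LIM protein (log2 3.04), Fhl5, a LIM-only cofactor (log2 2.92), Il31ra, a cytokine receptor chain (log2 2.71), and Serpina3n (log2 3.02) rose as well. The remaining genes of the 20 largest rises were Zbtb16, Fkbp5, Fam107a, Map7d2, Mt2, the non-coding Gm27252, Aldh1a7 and Aldh1a1.

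The largest falls were smaller than the largest rises and spread over unrelated functions. Slc15a3 (ENSMUSG00000024737, chromosome 19, 10839727 to 10859362), a lysosomal transporter of histidine and peptides, went from 3.13, 2.402 and 3.18 to 0.683, 0.454 and 0.359 CPM (log2 -2.35 ± 0.24, adjusted p = 2.37e-07). Nptx1, a secreted pentraxin of nerve cells, went from 6.69, 7.51 and 7.73 to 2.17, 2.27 and 2.67 CPM (log2 -1.603 ± 0.12, adjusted p = 9.83e-10). Thbd (ENSMUSG00000074743, chromosome 2, 148404466 to 148408188), thrombomodulin, which turns thrombin towards anticoagulant action, went from 97.9, 95.1 and 98.5 to 34.0, 37.5 and 34.7 CPM (log2 -1.45 ± 0.07, adjusted p = 3.65e-13). Thbd is the member of this group with the most reads, and its values in each group were within a few CPM of each other. Fam167a (log2 -1.96), Unc13c, a vesicle-priming protein (log2 -1.599), Ano5, an anoctamin (log2 -1.53), Prtg, protogenin (log2 -1.53), Zcchc12 (log2 -1.62), Slc14a1, a urea transporter (log2 -1.45), the tight junction gene Cldn4 (log2 -1.63) and 9930111J21Rik2 (log2 -1.48) fell too. Reads of 9930111J21Rik2 can be shared with a close copy, so its value is uncertain. The other members of the 20 largest falls are described with their groups: Heyl, Sema7a, Sema5b, Il6, Il11, Aldh1a3, Esr1, Nr1d1 and Pde4b.

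**Figure D2:**
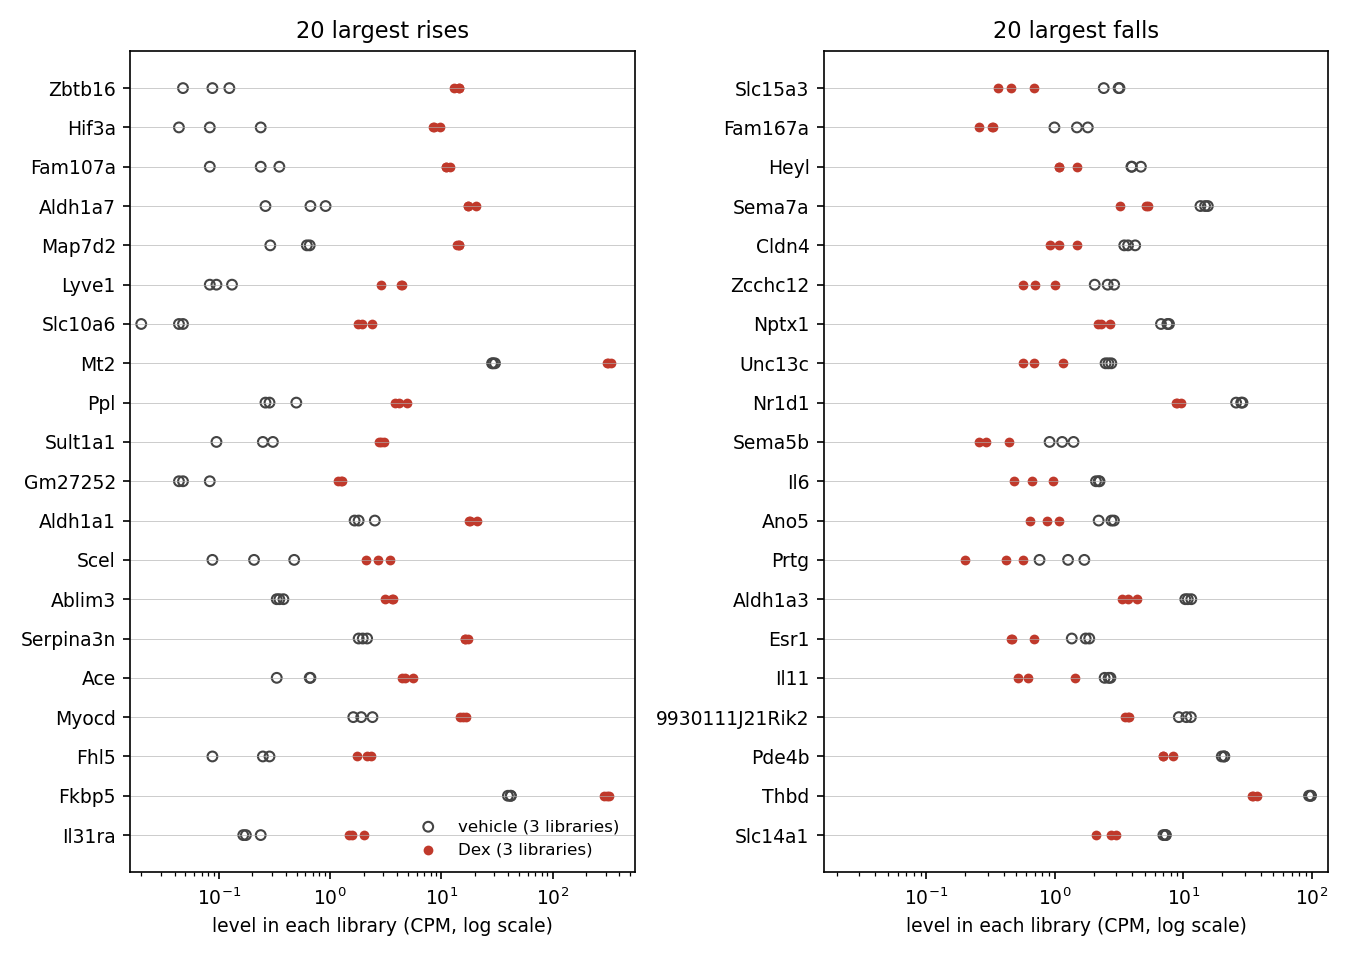
Level in CPM (x axis, log scale) in each of the 3 vehicle and 3 Dex libraries for the 20 largest rises and the 20 largest falls. A point is a library, and values at 0 are drawn at the left edge. The groups do not overlap for any of these genes, which is part of the rule that chose them.

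Growth factor genes changed in both directions. Of 40 tested ligand genes of mesenchyme and vessels, 9 rose and 13 fell, 55% of the list against 13.2% of all genes. Vegfd (ENSMUSG00000031380, chromosome X, 164373378 to 164402650), a ligand of the lymphatic receptor VEGFR-3, went from 18.9, 16.8 and 17.9 to 60.9, 57.4 and 60.6 CPM (log2 1.74 ± 0.06, adjusted p = 9.53e-15). Gas6 (ENSMUSG00000031451, chromosome 8, 13465374 to 13494490), the ligand of the TAM receptor kinases, went from 172, 169.7 and 179 to 432, 417 and 423 CPM (log2 1.29 ± 0.07, adjusted p = 1.47e-11). Tgfa, a ligand of the epidermal growth factor receptor (EGFR), went from 2.23, 1.83 and 1.70 to 7.96, 7.81 and 7.12 CPM (log2 1.95 ± 0.12, adjusted p = 7.33e-11). Angptl7 rose from 1.04, 1.31 and 1.12 to 5.79, 6.73 and 5.48 CPM (log2 2.30 ± 0.16, adjusted p = 3.08e-10).

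Other EGFR ligands moved the opposite way to Tgfa. Hbegf (ENSMUSG00000024486, chromosome 18, 36504927 to 36515805), heparin-binding EGF, fell from 106, 101 and 96.3 to 52.5, 48.4 and 52.7 CPM (log2 -0.98 ± 0.06, adjusted p = 2.39e-11), and Areg, amphiregulin, fell from 0.902, 0.961 and 0.662 to 0.0804, 0.372 and 0.256 CPM (log2 -1.56 ± 0.34, adjusted p = 0.00238). Hgf (ENSMUSG00000028864, chromosome 5, 16553495 to 16620152), the ligand of the MET receptor, fell from 24.4, 24.1 and 22.9 to 10.9, 9.54 and 9.59 CPM (log2 -1.24 ± 0.14, adjusted p = 1.34e-06). In Hbegf and Hgf every Dex library was well below every vehicle library. Within the VEGF genes, Vegfc rose (log2 0.80 ± 0.07, adjusted p = 3.63e-08) with Vegfd, while Vegfa fell (log2 -0.45 ± 0.05, adjusted p = 1.28e-06). Among the receptors 7 of 31 rose and 7 fell, or 5 and 9 with scaling by library totals alone. Mertk, a receptor for Gas6, rose (log2 0.53 ± 0.10, adjusted p = 0.000446), and Pdgfra rose (log2 0.47) while Pdgfrb fell (log2 -0.25).

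A list of brakes and targets was made around the ERK cascade, which growth factors switch on through their receptors. Its genes were called lower in more cases than higher. Of 24 tested genes 12 fell and 4 rose, with a median log2 of -0.23 against 0.0002 for all genes. The list also holds other phosphatases, a Ras GTPase-activating protein and Ras-like genes. Whether each member is a feedback gene of ERK was not tested. The phosphatase gene Dusp4 (ENSMUSG00000031530, chromosome 8, 34807297 to 34819894) fell from 31.3, 31.9 and 31.0 to 14.3, 13.8 and 15.8 CPM (log2 -1.10 ± 0.09, adjusted p = 3.12e-09). The ETS factors Etv1, Etv4 and Etv5, targets of ERK and not brakes, are among the falls: Etv1 (log2 -0.67 ± 0.18, adjusted p = 0.0132), Etv4 (log2 -0.56 ± 0.09, adjusted p = 8.4e-05) and Etv5 (log2 -0.57 ± 0.08, adjusted p = 2.23e-05). The call of Etv1 was lost without vehicle replicate 2 or Dex replicate 3 (adjusted p = 0.0604 and 0.0805). The inhibitors Spry1 (log2 -0.51), Spry2 (log2 -0.50), Spry4 (log2 -0.34), Spred1 (log2 -0.37) and Spred3 (log2 -0.40) fell, as did the dual-specificity phosphatase Dusp10 (log2 -0.46), the Ras GTPase-activating protein Rasa1 (log2 -0.41) and Dusp16 (log2 -0.26). The call of Dusp16 was lost without vehicle replicate 2 or 3 or Dex replicate 1, 2 or 3 (adjusted p = 0.0847 to 0.148). The 4 that rose include another phosphatase of the Dusp family. Errfi1 (ENSMUSG00000028967, chromosome 4, 150853919 to 150868892), which binds and blocks EGFR itself, went from 98.8, 100.2 and 99.6 to 187, 185 and 191 CPM (log2 0.91 ± 0.05, adjusted p = 7.47e-12), and Dusp1 (log2 0.46) and the Ras-like genes Rasd1 (log2 1.81 ± 0.36, adjusted p = 0.00109) and Rasl11b (log2 0.28) rose. The call of Rasl11b was lost without vehicle replicate 2 or 3 or Dex replicate 1 (adjusted p = 0.0609 to 0.0841). Rasd1 was at 0.0950, 0.218 and 0.124 CPM with vehicle and 0.844, 0.743 and 0.513 CPM with Dex.

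Of 27 tested AP-1 and immediate early factors, some of which the same cascade switches on, 6 fell and 2 rose, or 9 and 2 with scaling by library totals alone. Egr3 fell from 2.52, 2.18 and 2.15 to 0.643, 0.743 and 1.13 CPM (log2 -1.39 ± 0.22, adjusted p = 7.21e-05), Egr2 fell (log2 -0.70 ± 0.10, adjusted p = 2.8e-05), and the orphan receptor genes Nr4a3 (log2 -0.91 ± 0.26, adjusted p = 0.0185) and Nr4a2 (log2 -0.58 ± 0.11, adjusted p = 0.00042) fell. The call of Nr4a3 was lost without vehicle replicate 2 or 3 or Dex replicate 3 (adjusted p = 0.067 to 0.104), and also in a fit of only the 12 wild-type libraries (adjusted p = 0.0597). Egr1 (ENSMUSG00000038418, chromosome 18, 34859823 to 34864984) fell from 105, 111 and 111 to 86.0, 89.3 and 89.9 CPM (log2 -0.30 ± 0.05, adjusted p = 0.000173), a small change that was larger than the spread of either group. Fos rose (log2 0.47), as did Maf (log2 0.45). Jun was not called, with 68.3, 71.6 and 73.2 CPM with vehicle and 58.6, 56.9 and 54.6 CPM with Dex, and neither was Fosl1, with 17.6, 20.3 and 18.4 and 14.6, 16.1 and 17.1 CPM.

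**Figure D3:**
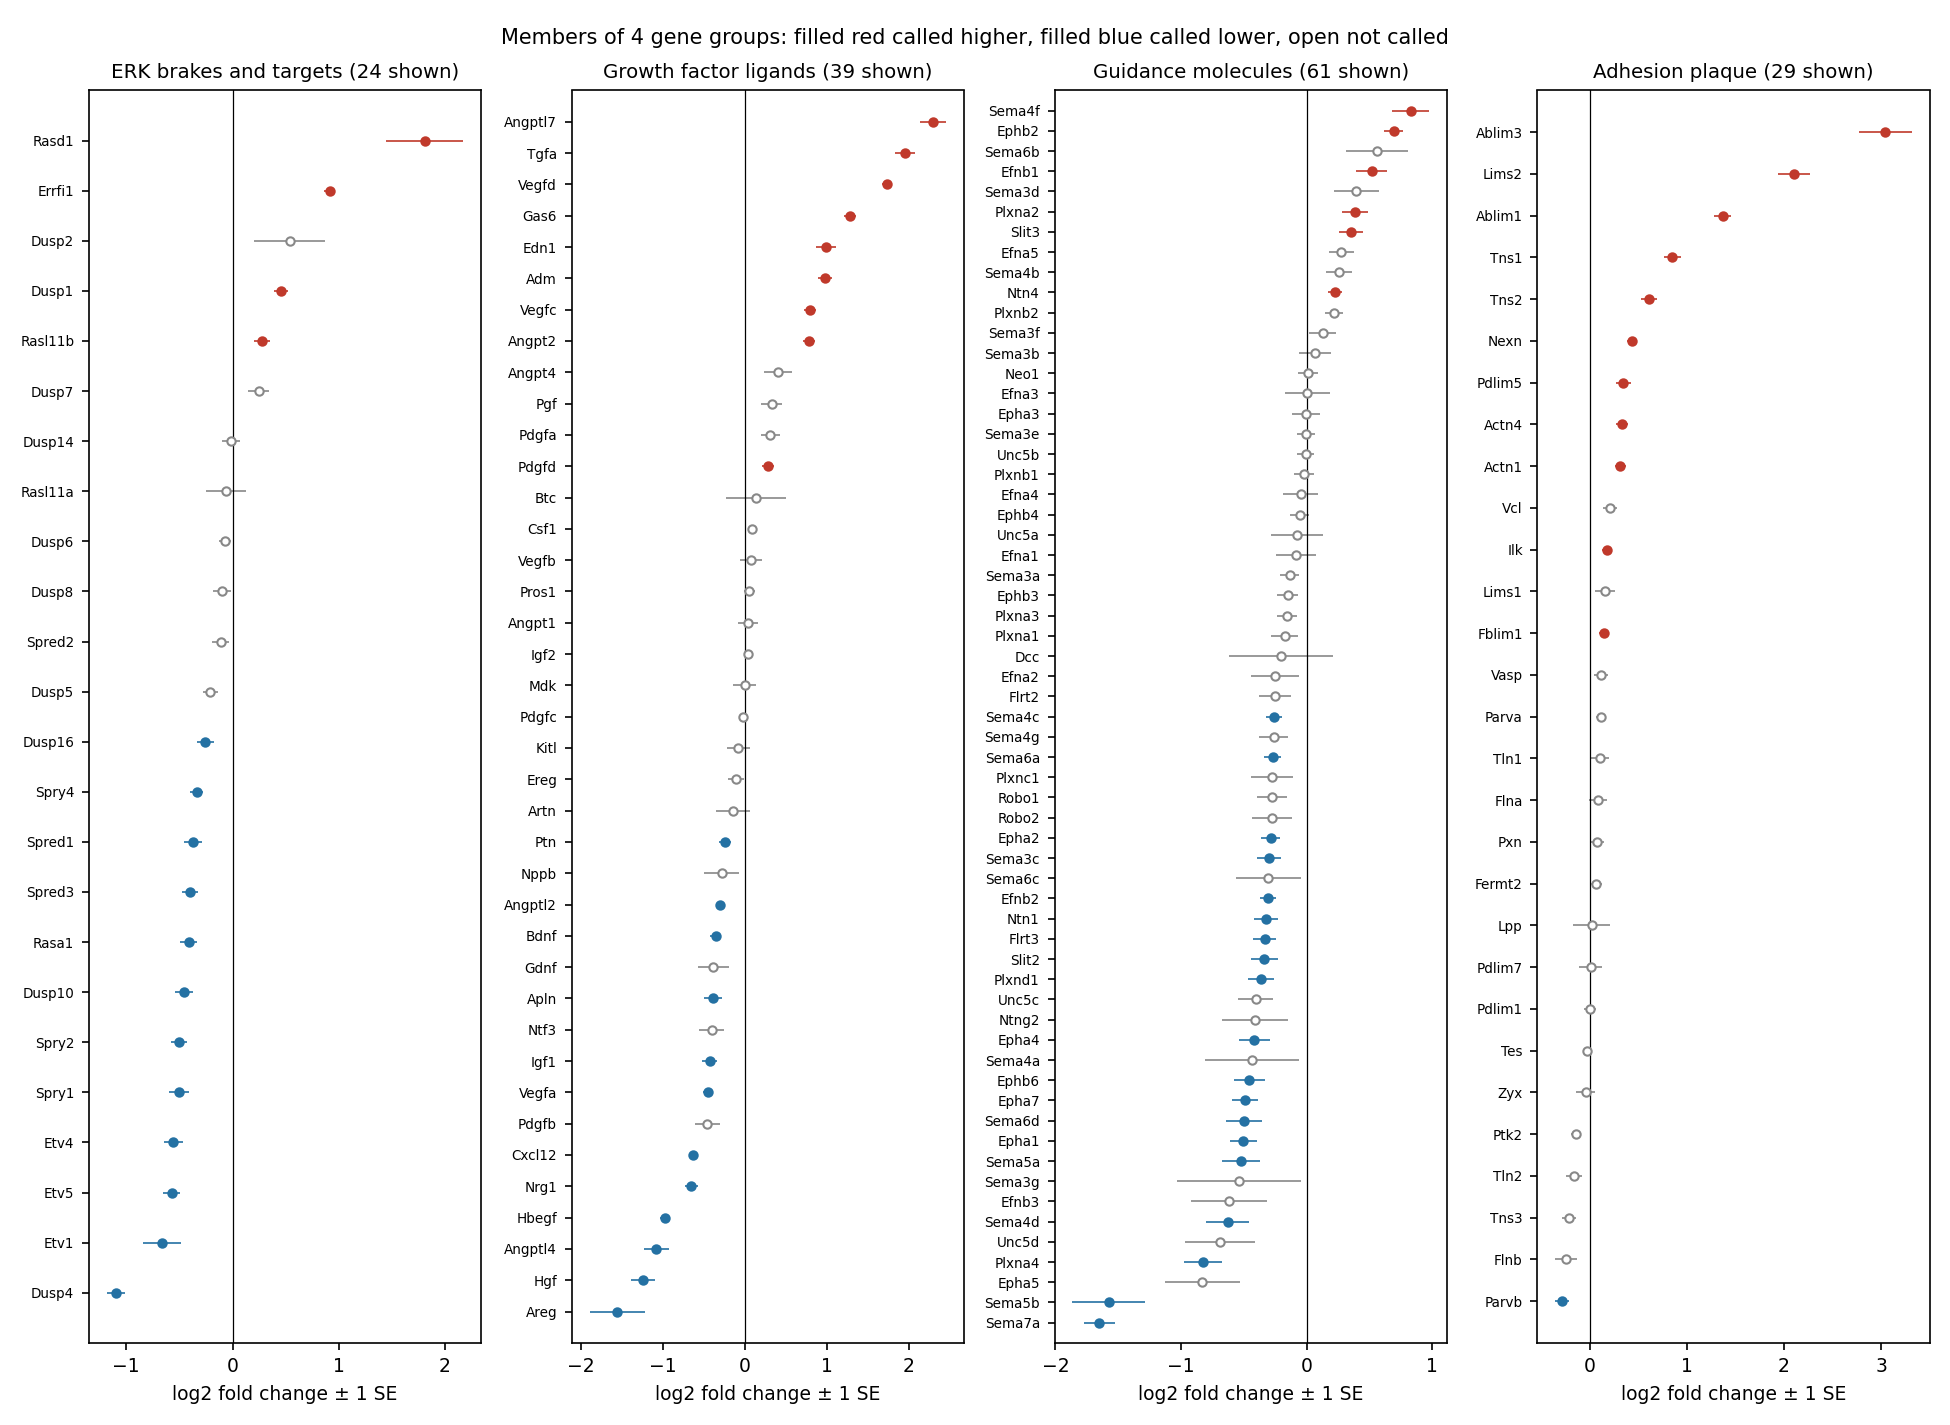
Log2 fold change with Dex (x axis) for tested members of 4 gene groups: ERK brakes and feedback targets, growth factor ligands, guidance molecules, and the adhesion plaque. Points are genes with bars of 1 approximate SE, filled where called, and the vertical line marks 0. Most filled points of the ERK list and of the guidance molecules lie left of the line, and most of those of the adhesion plaque lie right of it.

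Developmental signalling pathways changed at several levels. In the TGF-beta and activin list 6 of 36 rose and 6 fell, 33.3% called against 13.2% of all genes. Tgfbr3 (ENSMUSG00000029287, chromosome 5, 107106570 to 107289629), betaglycan, the co-receptor of TGF-beta and inhibin, went from 22.3, 22.4 and 23.4 to 50.8, 51.8 and 52.3 CPM (log2 1.18 ± 0.10, adjusted p = 4.85e-09). Smad3, the transducer, fell from 94.2, 97.4 and 93.2 to 61.8, 63.0 and 63.6 CPM (log2 -0.60 ± 0.06, adjusted p = 2.58e-07). Inhba, the activin A subunit, was at 179, 173 and 177 CPM with vehicle and 101, 101 and 104 CPM with Dex (log2 -0.79 ± 0.23, adjusted p = 0.0262). The call of Inhba was lost on leaving out any of the 6 libraries, at an adjusted p of 0.0577 to 0.0821, and also with no filter on low counts (adjusted p = 0.0772). The 2 groups did not overlap, and the SE of the fit over 24 libraries includes the spread of the other groups. The activin inhibitor Fstl3 rose (log2 0.66 ± 0.08, adjusted p = 4.99e-06), Inhbb rose (log2 0.48 ± 0.08, adjusted p = 0.000157), and Nrros, which anchors latent TGF-beta on myeloid cells, fell (log2 -0.87 ± 0.19, adjusted p = 0.00224). Leukocyte markers fell in sum with Nrros, though not each of them, and their part in its fall was not tested.

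Of the bone morphogenetic protein (BMP) list 5 of 34 rose and 4 fell, or 5 and 9 with scaling by library totals alone. The share called in the main fit was 26.5%, against 13.2% of all genes. The secreted inhibitors moved oppositely: Nog rose from 1.09, 0.873 and 1.41 to 2.05, 2.44 and 2.41 CPM (log2 0.98 ± 0.21, adjusted p = 0.00193), and Grem1 (ENSMUSG00000074934, chromosome 2, 113746164 to 113758646) fell from 298, 285 and 299.8 to 167, 161 and 167 CPM (log2 -0.83 ± 0.07, adjusted p = 4.86e-09). The ligand Bmp5 fell (log2 -0.74 ± 0.18, adjusted p = 0.00664), the transducer Smad9 rose (log2 0.76 ± 0.10, adjusted p = 4.2e-06), and the BMP target Id4 rose (log2 0.42 ± 0.13, adjusted p = 0.0266). The call of Id4 was lost without vehicle replicate 1 or 2 or Dex replicate 2 or 3 (adjusted p = 0.0666 to 0.13), and also from unstranded counts (adjusted p = 0.0799).

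The WNT list had 13 lower and 8 higher members of 56 tested, 37.5% called against 13.2% of all genes. Ror1 (ENSMUSG00000035305, chromosome 4, 100095791 to 100444765), a receptor tyrosine kinase for Wnt5a, went from 13.1, 12.7 and 14.9 to 31.2, 30.4 and 30.2 CPM (log2 1.17 ± 0.10, adjusted p = 4.89e-09). The secreted inhibitors Sfrp4 and Dkk2 fell, Sfrp4 from 1.99, 1.66 and 2.15 to 0.563, 0.661 and 0.923 CPM (log2 -1.36 ± 0.20, adjusted p = 3.2e-05) and Dkk2 from 28.9, 29.4 and 26.8 to 15.0, 13.3 and 13.4 CPM (log2 -1.03 ± 0.07, adjusted p = 2.3e-10). Lef1, a nuclear effector of the pathway, fell from 2.90, 2.62 and 2.44 to 1.21, 1.16 and 1.13 CPM (log2 -1.13 ± 0.17, adjusted p = 3.63e-05). The R-spondin receptor Lgr6 fell (log2 -0.98 ± 0.14, adjusted p = 2.49e-05), and the ligand Wnt4 rose (log2 0.85 ± 0.14, adjusted p = 0.000135). Agonist, antagonist and effector genes were called in both directions: 2 higher and 2 lower among 12 ligands, 4 and 5 among 20 receptors, 1 and 4 among 10 secreted inhibitors. With scaling by library totals alone 4 of these inhibitors fell and 0 rose.

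In the Notch list a receptor rose while target genes fell. Notch4 (ENSMUSG00000015468, chromosome 17, 34564268 to 34588503), a receptor best known from endothelium, went from 1.14, 1.48 and 1.53 to 9.45, 8.55 and 8.97 CPM (log2 2.63 ± 0.17, adjusted p = 1.42e-10). Heyl (ENSMUSG00000032744, chromosome 4, 123233556 to 123249875), a target, went from 3.94, 3.97 and 4.67 to 1.09, 1.49 and 1.08 CPM (log2 -1.72 ± 0.16, adjusted p = 2.64e-08). The targets Hey1 (log2 -0.55 ± 0.15, adjusted p = 0.0164) and Hes1 (log2 -0.39 ± 0.10, adjusted p = 0.00761) fell too. The call of Hey1 was lost without vehicle replicate 3 or Dex replicate 1 (adjusted p = 0.0675 and 0.138), and also in a fit of only the 12 wild-type libraries (adjusted p = 0.0644). The call of Hes1 was lost without Dex replicate 2 (adjusted p = 0.056). Rbpj, the DNA-binding partner of the cleaved receptor, fell from 125, 122 and 119.9 to 83.5, 82.6 and 81.8 CPM (log2 -0.57 ± 0.12, adjusted p = 0.00133), and the ubiquitin ligase gene Neurl3 fell (log2 -1.78 ± 0.41, adjusted p = 0.00421). The glycosyltransferase Lfng, which modifies Notch receptors, rose (log2 0.67 ± 0.12, adjusted p = 0.00028). In all 5 of 18 tested targets and modulators fell and 1 rose. Notch1, another receptor, was at 46.4, 48.9 and 48.8 CPM with vehicle and 38.7, 42.4 and 36.5 CPM with Dex and was not called.

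Guidance molecules steer axons and vessels. Of 61 tested 19 fell and 6 rose, with 5.24% and 7.92% of all genes for comparison. Sema7a (ENSMUSG00000038264, chromosome 9, 57940112 to 57962865), a membrane-anchored semaphorin that binds integrins, fell from 13.6, 15.5 and 14.8 to 5.35, 5.08 and 3.23 CPM (log2 -1.65 ± 0.12, adjusted p = 9.83e-10). Sema5b fell from 1.14, 1.40 and 0.910 to 0.442, 0.289 and 0.256 CPM (log2 -1.57 ± 0.29, adjusted p = 0.000439), and the receptor Plxna4 fell from 31.3, 26.9 and 27.1 to 15.4, 16.2 and 16.5 CPM (log2 -0.83 ± 0.15, adjusted p = 0.000428). Over the whole semaphorin family 8 of 20 tested genes fell, and Sema4f was the exception that rose (log2 0.83 ± 0.15, adjusted p = 0.00027). Of the Eph receptors, 5 of 10 fell, and Ephb2 rose (log2 0.69 ± 0.08, adjusted p = 4.46e-07). Sema4d fell as well (log2 -0.63 ± 0.17, adjusted p = 0.0162). The call of Sema4d was lost without vehicle replicate 2 or Dex replicate 3 (adjusted p = 0.0765 and 0.0853).

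Collagen-related genes mostly rose where they were called. Col11a1 (ENSMUSG00000027966, chromosome 3, 114030540 to 114220718), a minor fibrillar collagen that sets fibril width, went from 481, 490.2 and 510.0 to 1221, 1231 and 1225 CPM (log2 1.31 ± 0.07, adjusted p = 9.81e-12). Of the chains of type VI collagen, which forms beaded filaments around cells, Col6a1 and Col6a2 rose. Col6a1 went from 399, 417 and 426 to 744, 720.3 and 698 CPM (log2 0.80 ± 0.06, adjusted p = 2.45e-09) and Col6a2 from 199.6, 206 and 213 to 407, 399 and 369.8 CPM (log2 0.93 ± 0.09, adjusted p = 6.93e-08), whereas Col6a3 was at 395, 389.5 and 408 and 364, 355 and 366 CPM and was not called. Col27a1 fell (log2 -0.53 ± 0.08, adjusted p = 6.48e-05), Col15a1 rose (log2 0.49 ± 0.12, adjusted p = 0.00804), and Col5a3 fell (log2 -0.35 ± 0.09, adjusted p = 0.00721). The call of Col15a1 was lost without vehicle replicate 2 (adjusted p = 0.0698). The main type I and III chains were not called, with Col1a1 at 7083, 7746 and 8005 CPM with vehicle and 8182, 8473 and 7649 CPM with Dex. Of 33 collagen genes 6 rose and 3 fell, 27.3% called against 13.2% of all genes. Scaling by library totals alone gave 5 higher and 3 lower.

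The enzymes that modify and cross-link collagen mostly rose where called. Of 29 tested 7 rose and 0 fell, and scaling by library totals alone gave 6 and 1. Lox (ENSMUSG00000024529, chromosome 18, 52516067 to 52529867), lysyl oxidase, which cross-links collagen and elastin, went from 2939, 2944 and 2981 to 4679, 4622 and 4608 CPM (log2 0.65 ± 0.08, adjusted p = 4.24e-06). Loxl3 rose (log2 0.58 ± 0.05, adjusted p = 1.72e-08), as did the prolyl hydroxylases P4ha2 (log2 0.50 ± 0.04, adjusted p = 6.43e-09), P4ha3 (log2 0.31) and P3h2 (log2 0.35) and the procollagen peptidase Adamts2 (log2 0.39). The call of P3h2 was lost without vehicle replicate 1 or 3 or Dex replicate 2 or 3 (adjusted p = 0.0695 to 0.211), and also with scaling by library totals alone (adjusted p = 0.0811), with no filter on low counts (adjusted p = 0.0715), from unstranded counts (adjusted p = 0.0947) and with GC offsets (adjusted p = 0.0556).

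Several genes of hyaluronan production and binding fell. Has2 (ENSMUSG00000022367, chromosome 15, 56665627 to 56694539), the main hyaluronan synthase of fibroblasts, fell from 88.8, 87.9 and 83.9 to 34.1, 33.2 and 34.6 CPM (log2 -1.35 ± 0.09, adjusted p = 6.5e-11). Cd44 (ENSMUSG00000005087, chromosome 2, 102811141 to 102901665), the chief hyaluronan receptor, fell from 640.4, 631 and 635 to 375, 369.9 and 383 CPM (log2 -0.76 ± 0.06, adjusted p = 4.1e-09). In both genes the 3 libraries of each group lay close together and far from the other group. Tnfaip6, which cross-links hyaluronan through heavy chains, fell (log2 -0.47 ± 0.09, adjusted p = 0.000559), and Has1 fell from 0.475, 0.699 and 0.331 to 0.121, 0.165 and 0.205 CPM (log2 -1.28 ± 0.32, adjusted p = 0.0081). The call of Has1 was lost without vehicle replicate 2 or Dex replicate 1 (adjusted p = 0.113 and 0.0507), and also from unstranded counts (log2 -0.65, adjusted p = 0.172). The link protein Hapln1 rose (log2 1.76 ± 0.45, adjusted p = 0.0105), but its values, 0.807, 0.611 and 0.413 CPM with vehicle and 1.45, 1.03 and 4.36 CPM with Dex, rest on Dex replicate 3. The call of Hapln1 was lost without vehicle replicate 3 or Dex replicate 3 (adjusted p = 0.0662 and 0.157), and also in a fit of only the 6 compared libraries (adjusted p = 0.18). Some other cartilage and bone markers were high in the same library alone. Acan was at 3.85, 4.37 and 2.73 CPM with vehicle and 2.57, 3.22 and 13.99 CPM with Dex. Col9a1 was at 1.09, 1.62 and 0.910 CPM with vehicle and 1.25, 0.9499 and 8.20 CPM with Dex, and Ibsp was at 0.760, 0.262 and 0.0827 CPM with vehicle and 0.0804, 0.289 and 12.4 CPM with Dex. Col2a1 did not share this, at 250.5, 270.5 and 261.6 CPM with vehicle and 212, 217.8 and 255.6 CPM with Dex per library total. Of the 13 such markers 2 were called higher and 1, Spp1, lower. Their sum was 2222 to 2256 CPM with vehicle and 2473 to 2563 CPM with Dex. Col11a1, which is in this sum, rose in every Dex library, from 498.6, 502.4 and 523.9 to 1212, 1219 and 1226 CPM per library total. The part of these markers in the rise of Hapln1 was not tested. The synthase Has3 and the hyaluronidase Hyal2 were not called, with 0.475, 0.349 and 0.455 and 40.0, 43.8 and 41.3 CPM with vehicle and 0.281, 0.0826 and 0.154 and 35.3, 36.9 and 33.9 CPM with Dex. Of the 12 hyaluronan genes 4 fell and 1 rose. Lyve1, described above, rose and is not in that list.

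Proteoglycan core proteins split into both directions. Sdc4 (ENSMUSG00000017009, chromosome 2, 164424247 to 164443887), a transmembrane heparan sulphate proteoglycan of focal adhesions, was about 2-fold higher in every Dex library, from 98.8, 99.0 and 101 to 199, 204 and 206 CPM (log2 1.03 ± 0.05, adjusted p = 1.05e-12). Among small leucine-rich proteoglycans Omd (log2 0.90 ± 0.21, adjusted p = 0.00373) rose, and Lum fell (log2 -0.70 ± 0.21, adjusted p = 0.0284). The call of Lum was lost without vehicle replicate 1 or 3 or Dex replicate 2 or 3 (adjusted p = 0.0583 to 0.191), and also in a fit of only the 6 compared libraries (adjusted p = 0.103), without the 5 libraries apart from their groups (adjusted p = 0.0659) and with no filter on low counts (adjusted p = 0.0908). Matricellular proteins, which bind matrix and receptors without forming fibres, had 9 higher and 6 lower of 26. Postn (ENSMUSG00000027750, chromosome 3, 54361109 to 54391037), periostin, went from 1651, 1639 and 1589 to 3228, 3125 and 3081 CPM (log2 0.95 ± 0.07, adjusted p = 2.33e-10), and Tnn, tenascin N, rose (log2 0.85 ± 0.14, adjusted p = 9e-05). Ccn2, formerly connective tissue growth factor, rose from 1143, 1129 and 1119 to 1699, 1717 and 1750.0 CPM (log2 0.61 ± 0.05, adjusted p = 1.56e-09). Spon2 fell from 13.4, 14.1 and 13.6 to 5.55, 5.66 and 5.79 CPM (log2 -1.26 ± 0.11, adjusted p = 1.26e-08), and Ccn4 (log2 -0.70 ± 0.08, adjusted p = 1.26e-06) and Tgfbi (log2 -0.55 ± 0.06, adjusted p = 5.06e-07) fell. For each of these genes the difference was larger than the spread between the replicates of either group.

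Integrin chains did not move as a set, with 5 higher and 5 lower of 20, 50% called against 13.2% of all genes. Itga5 (ENSMUSG00000000555, chromosome 15, 103344286 to 103366763), the fibronectin receptor chain, went from 752, 808 and 795 to 1323, 1359.9 and 1334 CPM (log2 0.77 ± 0.04, adjusted p = 1.47e-11). Itga8 (log2 0.95 ± 0.12, adjusted p = 5.52e-06), Itga10 (log2 0.96 ± 0.16, adjusted p = 0.000107) and Itga4 (log2 0.84 ± 0.17, adjusted p = 0.00122) rose as well. Itgb3 (ENSMUSG00000020689, chromosome 11, 104608000 to 104670476), the chain of the vitronectin receptor, fell from 78.6, 76.0 and 74.8 to 42.2, 41.8 and 38.2 CPM (log2 -0.91 ± 0.06, adjusted p = 2.3e-10), and Itgb8, which activates latent TGF-beta, fell (log2 -0.72 ± 0.20, adjusted p = 0.0146). The call of Itgb8 was lost without vehicle replicate 2 or 3 or Dex replicate 2 (adjusted p = 0.0615 to 0.0773). Itgb1, the common partner of the alpha chains that rose, was not called, at 3103, 3024 and 2965 CPM with vehicle and 3115, 3136 and 3130.2 CPM with Dex.

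In the adhesion plaque 11 of 29 genes rose and 1 fell, 41.4% called against 13.2% of all genes. Lims2 (ENSMUSG00000024395, chromosome 18, 31922290 to 31958619), PINCH-2, an adaptor of integrin-linked kinase, went from 5.46, 5.89 and 6.53 to 26.4, 24.4 and 27.0 CPM (log2 2.10 ± 0.16, adjusted p = 2.23e-09). Ablim1, an actin-binding LIM protein, went from 30.4, 30.4 and 30.0 to 79.4, 79.9 and 75.1 CPM (log2 1.37 ± 0.08, adjusted p = 4.02e-11), and Ablim3 is among the largest rises. The tensins Tns1 (log2 0.85 ± 0.09, adjusted p = 1.77e-07) and Tns2 (log2 0.61 ± 0.09, adjusted p = 1.71e-05) and the actin-binding Nexn (log2 0.43 ± 0.05, adjusted p = 1.54e-06) rose. Small GTPases and their regulators had 9 higher and no lower member of 31. They included Rhoj, from 51.9, 50.2 and 53.2 to 102, 109.7 and 98.6 CPM (log2 1.00 ± 0.06, adjusted p = 7.22e-12), the kinase Pak3 (log2 0.78 ± 0.14, adjusted p = 0.00027), the kinase Rock2 (log2 0.72 ± 0.11, adjusted p = 8.46e-05), Cdc42ep2 (log2 0.45 ± 0.09, adjusted p = 0.00133), Limk2 (log2 0.44 ± 0.05, adjusted p = 1.08e-06) and Errfi1, given above. The exchange factor gene Arhgef26 rose from 1.90, 2.31 and 2.32 to 6.83, 6.94 and 8.41 CPM (log2 1.72 ± 0.14, adjusted p = 3.43e-09), and in its family 5 of 22 rose and 1 fell, or 5 and 2 with scaling by library totals alone. With scaling by library totals alone the plaque had 9 higher and 3 lower genes. Of the calls of the main fit, 10 of the 12 in the plaque and 9 of the 9 among small GTPases remained.

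Cytokine and chemokine genes fell in 19 and rose in 7 of 77 tested cases, 33.8% of the list against 13.2% of all genes. Scaling by library totals alone gave 23 lower and 4 higher. Tnfsf11 (ENSMUSG00000022015, chromosome 14, 78277445 to 78308043), RANKL, which drives osteoclast formation, fell from 4.27, 3.97 and 3.93 to 1.49, 1.98 and 1.18 CPM (log2 -1.33 ± 0.13, adjusted p = 7.89e-08). Its soluble decoy receptor osteoprotegerin, Tnfrsf11b (ENSMUSG00000063727, chromosome 15, 54250619 to 54278484), also fell, from 60.02, 56.7 and 58.1 to 22.8, 23.1 and 23.7 CPM (log2 -1.33 ± 0.07, adjusted p = 5.23e-12). The ratio of ligand to decoy reads was 0.0712, 0.0701 and 0.0676 in the vehicle libraries and 0.0651, 0.0859 and 0.0498 in the Dex libraries, so the ranges of the 2 groups overlapped. Il11 (ENSMUSG00000004371, chromosome 7, 4772373 to 4782859), a cytokine of the IL-6 family made by fibroblasts, fell from 2.71, 2.62 and 2.44 to 1.45, 0.619 and 0.513 CPM (log2 -1.48 ± 0.24, adjusted p = 0.000108). The shared receptor chain of that family, Il6st, rose from 422, 412 and 414 to 688, 679 and 645 CPM (log2 0.69 ± 0.11, adjusted p = 5.67e-05), and the IL-1 receptor antagonist Il1rn rose from 57.9, 57.1 and 57.1 to 97.9, 92.4 and 88.7 CPM (log2 0.70 ± 0.06, adjusted p = 3.17e-09). The chemokine Cx3cl1 fell from 41.0, 40.0 and 41.9 to 18.7, 18.8 and 17.2 CPM (log2 -1.16 ± 0.06, adjusted p = 6.9e-12), and Il6 and Ccl4 fell by log2 -1.56 and -1.68.

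Some genes best known from leukocytes fell. Cx3cr1 (ENSMUSG00000052336, chromosome 9, 119901616 to 120069879), the receptor of Cx3cl1 on macrophages, went from 5.89, 6.64 and 6.49 to 2.65, 2.19 and 2.05 CPM (log2 -1.43 ± 0.20, adjusted p = 1.69e-05). Cd180, a Toll-like receptor relative of B cells and macrophages, went from 1.47, 1.88 and 1.49 to 0.643, 0.330 and 0.718 CPM (log2 -1.41 ± 0.23, adjusted p = 8.66e-05). Csf1r, the macrophage growth factor receptor, went from 10.2, 10.8 and 10.8 to 7.76, 7.97 and 7.94 CPM (log2 -0.42 ± 0.08, adjusted p = 0.00107). The 10 leukocyte markers, of which 3 were called lower and none higher, summed to 89.0 to 91.7 CPM with vehicle and 70.1 to 79.2 CPM with Dex, and their part in these falls was not tested. Ptprc, one of these markers, was at 2.28, 2.10 and 2.69 and 1.57, 1.12 and 1.79 CPM. Lyz2, the marker with the most reads, fell from 48.4, 48.0 and 45.6 to 34.2, 33.7 and 38.1 CPM per library total. Itgam (log2 0.44, adjusted p = 0.0659) and C1qa (log2 0.42, adjusted p = 0.0789) were higher in every Dex library and were not called. The markers thus did not share a direction. The call of Ptprc was lost without vehicle replicate 3 or Dex replicate 2 (adjusted p = 0.103 and 0.123). Lbp, which hands lipopolysaccharide to its receptor, rose from 0.522, 0.393 and 0.620 to 2.13, 2.97 and 2.31 CPM (log2 2.11 ± 0.23, adjusted p = 4.46e-07). The other called pattern recognition genes were Tlr1 (log2 -1.17 ± 0.32, adjusted p = 0.0375), Tlr5 (log2 0.76 ± 0.20, adjusted p = 0.0121) and Cgas (log2 -0.37 ± 0.12, adjusted p = 0.048). The call of Tlr1 was lost without vehicle replicate 1 or 2 or Dex replicate 1, 2 or 3 (adjusted p = 0.0513 to 0.219), and also with no filter on low counts (adjusted p = 0.0653) and in DESeq2 (adjusted p = 0.0964). The call of Tlr5 was lost without vehicle replicate 3 or Dex replicate 3 (adjusted p = 0.0581 and 0.0649). The call of Cgas was lost without vehicle replicate 1 or 2 or Dex replicate 1, 2 or 3 (adjusted p = 0.0682 to 0.265), and also in a fit of only the 12 wild-type libraries (adjusted p = 0.12), with no filter on low counts (adjusted p = 0.0621), from unstranded counts (adjusted p = 0.072) and in DESeq2 (adjusted p = 0.0599).

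The NF-kB pathway list was balanced, at 5 higher and 5 lower of 40, 25% called against 13.2% of all genes. The inhibitor Nfkbia rose from 19.1, 17.9 and 18.6 to 28.9, 29.2 and 30.1 CPM (log2 0.66 ± 0.10, adjusted p = 3.94e-05), and Zfp36 (ENSMUSG00000044786, chromosome 7, 28376784 to 28380253), tristetraprolin, which destabilises cytokine mRNA, rose from 37.2, 39.5 and 36.7 to 63.0, 62.4 and 64.5 CPM (log2 0.74 ± 0.06, adjusted p = 1.18e-08). The brake Irak3 rose (log2 0.53 ± 0.11, adjusted p = 0.00111), as did the kinase Map3k8 (log2 0.65 ± 0.14, adjusted p = 0.00256). Ripk2 (log2 -0.58 ± 0.06, adjusted p = 1.36e-07) and Nfkbiz (log2 -0.56 ± 0.09, adjusted p = 0.000171) fell. Interferon-stimulated genes were called in 3 of 43 cases (2 higher, 1 lower), with 13.2% of all genes for comparison.

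In the list of prostaglandin and lipid mediator genes 9 of 36 rose and 3 fell, 33.3% called against 13.2% of all genes. The steps that make prostaglandin precursors fell: Ptgs2 (ENSMUSG00000032487, chromosome 1, 150100031 to 150108227), the inducible cyclooxygenase, from 328, 314 and 325 to 132, 126 and 145 CPM (log2 -1.26 ± 0.13, adjusted p = 2.22e-07), and Pla2g4a, cytosolic phospholipase A2, from 142, 142 and 137 to 87.0, 84.3 and 85.1 CPM (log2 -0.71 ± 0.07, adjusted p = 5.67e-08). Anxa1 (ENSMUSG00000024659, chromosome 19, 20373428 to 20390944), annexin A1, known as an inhibitor of phospholipase A2, rose from 1207, 1205 and 1179 to 1843, 1839 and 1877 CPM (log2 0.63 ± 0.06, adjusted p = 3.25e-08). Sphk1 (ENSMUSG00000061878, chromosome 11, 116530925 to 116536674), which makes sphingosine 1-phosphate, rose from 14.8, 17.3 and 16.8 to 47.4, 47.9 and 47.2 CPM (log2 1.54 ± 0.13, adjusted p = 1.42e-08), and the lipid phosphatase Plpp1 rose (log2 0.83 ± 0.05, adjusted p = 7.33e-11). Ephx2, soluble epoxide hydrolase, rose from 5.60, 5.89 and 6.37 to 15.6, 17.1 and 14.8 CPM (log2 1.40 ± 0.19, adjusted p = 9.49e-06), and the lipoxygenase Alox12 rose from 0.190, 0.262 and 0.496 to 1.53, 0.867 and 1.54 CPM (log2 1.80 ± 0.35, adjusted p = 0.000767). The groups did not overlap for any of these genes.

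Coagulation and fibrinolysis genes were called in 13 of 28 cases, 6 higher and 7 lower, 46.4% against 13.2% of all genes. F3 (ENSMUSG00000028128, chromosome 3, 121723537 to 121735048), tissue factor, which starts coagulation, rose from 121, 108 and 118 to 186, 183 and 189 CPM (log2 0.68 ± 0.07, adjusted p = 2.37e-07), while thrombomodulin fell, as given above. Plat, the tissue plasminogen activator, fell from 109.6, 112 and 111 to 56.8, 60.6 and 55.2 CPM (log2 -0.95 ± 0.05, adjusted p = 1.21e-12), and the urokinase receptor Plaur fell (log2 -0.49 ± 0.13, adjusted p = 0.0112). S100a10, a binding partner of plasminogen on the cell surface, rose (log2 0.49 ± 0.08, adjusted p = 0.000115).

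Regulators of insulin, FOXO and mTOR signalling were called in 14 of 39 cases, 10 higher and 4 lower, or 8 and 7 with scaling by library totals alone. The share called in the main fit was 35.9%, against 13.2% of all genes. Deptor (ENSMUSG00000022419, chromosome 15, 55112317 to 55259271), an inhibitor bound to mTOR, went from 7.12, 7.16 and 7.98 to 27.8, 23.7 and 24.8 CPM (log2 1.77 ± 0.16, adjusted p = 3.14e-08). Pik3r1 (ENSMUSG00000041417, chromosome 13, 101680563 to 101768217), the regulatory subunit of phosphoinositide 3-kinase, went from 63.7, 59.3 and 62.4 to 128, 122 and 122 CPM (log2 1.00 ± 0.09, adjusted p = 3.48e-08). Sesn1, a sestrin that restrains mTOR complex 1, rose from 15.1, 15.5 and 16.4 to 26.4, 26.5 and 24.8 CPM (log2 0.72 ± 0.07, adjusted p = 3.21e-08). Sgk1 rose by log2 1.48. The adaptor Irs2 rose (log2 0.58 ± 0.17, adjusted p = 0.0231), and Inpp4b, a phosphoinositide phosphatase, fell (log2 -1.26 ± 0.35, adjusted p = 0.0182). The call of Irs2 was lost without vehicle replicate 1 or 2 or Dex replicate 1 or 2 (adjusted p = 0.0768 to 0.098), and also with no filter on low counts (adjusted p = 0.0678). The call of Inpp4b was lost without vehicle replicate 1 or Dex replicate 1 or 3 (adjusted p = 0.0796 to 0.0976), and also in a fit of only the 12 wild-type libraries (adjusted p = 0.0568). Ddit4, another mTOR brake, was not called, with 71.3, 75.7 and 75.8 CPM with vehicle and 79.6, 82.6 and 69.5 CPM with Dex.

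Genes of fuel metabolism were called at a few steps. Of 42 genes of glucose use 9 rose and 1 fell. Pdk4 (ENSMUSG00000019577, chromosome 6, 5483351 to 5496309), the kinase that shuts pyruvate dehydrogenase, went from 15.9, 17.2 and 16.0 to 58.0, 54.9 and 57.3 CPM (log2 1.79 ± 0.10, adjusted p = 5.34e-12). Pcx, pyruvate carboxylase, rose (log2 0.58 ± 0.10, adjusted p = 0.00025), as did Slc2a4, the insulin-responsive glucose transporter (log2 0.72 ± 0.19, adjusted p = 0.012), the kinase Pfkfb4 (log2 0.38 ± 0.07, adjusted p = 0.0003), Pdha1 (log2 0.32 ± 0.04, adjusted p = 5.24e-06) and Pygb (log2 0.28 ± 0.05, adjusted p = 0.000299). The call of Slc2a4 was lost without Dex replicate 2 (adjusted p = 0.0552). Fatty acid synthesis and desaturation genes rose in 9 of 36 cases and fell in 1, or 7 and 3 with scaling by library totals alone. The largest change in that list was that of Mgll, a monoglyceride lipase and not a synthesis enzyme, from 27.4, 29.3 and 26.6 to 54.3, 55.8 and 51.3 CPM (log2 0.95 ± 0.08, adjusted p = 8.47e-09). In amino acid metabolism 5 of 33 rose and none fell, a share of 15.2% close to the 13.2% of all genes. Glul (ENSMUSG00000026473, chromosome 1, 153899944 to 153909723), glutamine synthetase, went from 33.6, 33.6 and 35.9 to 97.0, 96.7 and 93.0 CPM (log2 1.47 ± 0.06, adjusted p = 2.22e-14), Cdo1, cysteine dioxygenase, from 19.6, 17.9 and 19.8 to 38.5, 37.4 and 38.9 CPM (log2 1.00 ± 0.05, adjusted p = 3.95e-12), and Gldc, of the glycine cleavage system, from 1.14, 0.699 and 0.992 to 1.93, 2.27 and 2.36 CPM (log2 1.15 ± 0.23, adjusted p = 0.00121). The small rises of Oat and Odc1 (log2 0.22 and log2 0.17) complete that list. The call of Odc1 was lost without vehicle replicate 3 or Dex replicate 2 (adjusted p = 0.0946 and 0.0509), and also with scaling by library totals alone (adjusted p = 0.115) and with no filter on low counts (adjusted p = 0.109).

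Iron-handling genes were called in 10 of 21 cases, 8 higher and 2 lower, 47.6% against 13.2% of all genes. Slc40a1 (ENSMUSG00000025993, chromosome 1, 45908068 to 45926523), ferroportin, the iron exporter, fell from 8.97, 7.25 and 7.61 to 4.18, 3.76 and 3.18 CPM (log2 -1.08 ± 0.16, adjusted p = 3.25e-05). Cp, ceruloplasmin, the ferroxidase that works with it, rose from 8.83, 8.56 and 8.48 to 18.7, 17.7 and 20.9 CPM (log2 1.14 ± 0.18, adjusted p = 7.95e-05). Fth1, ferritin heavy chain, rose from 356, 366 and 353 to 483, 504 and 502 CPM (log2 0.47 ± 0.10, adjusted p = 0.00128), the reductase Steap2 rose (log2 0.62 ± 0.09, adjusted p = 1.78e-05), and the importer Slc39a14 rose (log2 0.36 ± 0.06, adjusted p = 0.00027). Lcn2 went from 0.0475, 0 and 0.165 to 0.643, 0.661 and 0.769 CPM (log2 2.34 ± 0.42, adjusted p = 0.000434). Tfrc, the transferrin receptor, was not called, at 193, 187 and 184 CPM with vehicle and 155, 154 and 158 CPM with Dex. In the list of oxidative defence genes Gclc (ENSMUSG00000032350, chromosome 9, 77754535 to 77794485), which limits glutathione synthesis, rose from 46.2, 45.4 and 43.5 to 109.5, 109 and 112 CPM (log2 1.29 ± 0.07, adjusted p = 4.22e-12), whereas other targets of the factor NRF2 fell slightly, Hmox1 (log2 -0.25 ± 0.07, adjusted p = 0.0158) and Txnrd1 (log2 -0.25 ± 0.05, adjusted p = 0.000404). The call of Hmox1 was lost without vehicle replicate 2 or Dex replicate 3 (adjusted p = 0.0773 and 0.0502). The other large changes in that list were the metallothioneins Mt2 (log2 3.44) and Mt1 (log2 2.03) and the extracellular peroxidase Gpx3 (log2 0.49).

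In the list of steroid metabolism the counts were 2 higher and 2 lower of 18, or 1 and 2 with scaling by library totals alone. The share called in the main fit was 22.2%, against 13.2% of all genes. H6pd (ENSMUSG00000028980, chromosome 4, 149979475 to 150009023), which supplies the cofactor for glucocorticoid reactivation by the reductase HSD11B1, rose from 85.7, 87.5 and 91.0 to 168, 165 and 153 CPM (log2 0.88 ± 0.06, adjusted p = 2.11e-10). Hsd11b2, the dehydrogenase that inactivates glucocorticoids, fell from 0.760, 1.14 and 1.12 to 0.442, 0.496 and 0.256 CPM (log2 -1.17 ± 0.30, adjusted p = 0.00848). The call of Hsd11b2 was lost without Dex replicate 3 (adjusted p = 0.055). Hsd11b1 itself was not called, at 0.332, 0.786 and 0.703 CPM with vehicle and 0.161, 0.578 and 0.205 CPM with Dex. Star fell (log2 -0.86 ± 0.28, adjusted p = 0.0414) and Hsd17b11 rose (log2 0.21 ± 0.06, adjusted p = 0.0316). The call of Star was lost on leaving out any of the 6 libraries, at an adjusted p of 0.0673 to 0.138, and also with no filter on low counts (adjusted p = 0.0956), from unstranded counts (log2 -0.32, adjusted p = 0.476) and in DESeq2 (adjusted p = 0.104). The call of Hsd17b11 was lost without vehicle replicate 2 or 3 or Dex replicate 1, 2 or 3 (adjusted p = 0.0699 to 0.128), and also in a fit of only the 12 wild-type libraries (adjusted p = 0.0519), with scaling by library totals alone (adjusted p = 0.13) and with no filter on low counts (adjusted p = 0.13).

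The retinoid list had 7 higher and 4 lower of 21, 52.4% called against 13.2% of all genes. Aldh1a7 and Aldh1a1, aldehyde dehydrogenases that are near-identical in sequence, reached 20.4, 17.3 and 17.5 and 20.7, 18.2 and 17.9 CPM with Dex from 0.665, 0.262 and 0.910 and 1.80, 1.66 and 2.52 CPM with vehicle. Whether both act on retinaldehyde was not tested. Reads of these near-identical copies can be assigned to either or be lost as multimapping, so the split between them is uncertain. Aldh1a3, a further aldehyde dehydrogenase, fell from 10.4, 11.5 and 10.8 to 3.70, 3.35 and 4.36 CPM (log2 -1.51 ± 0.09, adjusted p = 4.74e-11). Tgm2 (ENSMUSG00000037820, chromosome 2, 158116402 to 158146436), transglutaminase 2, a retinoid-inducible cross-linker of matrix, went from 27.1, 28.5 and 30.7 to 96.4, 94.8 and 89.4 CPM (log2 1.70 ± 0.09, adjusted p = 2.11e-12). Cyp26b1, which degrades retinoic acid, rose from 20.8, 20.6 and 22.7 to 40.7, 41.9 and 41.2 CPM (log2 0.94 ± 0.08, adjusted p = 3.63e-09), and Rarres1 rose (log2 0.91 ± 0.17, adjusted p = 0.0005).

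Ion channel and pump genes rose in 19 of 101 cases and fell in 8, 26.7% called against 13.2% of all genes. Clca3a1 (ENSMUSG00000056025, chromosome 3, 144729677 to 144760977), a secreted regulator of calcium-activated chloride currents, went from 21.9, 20.2 and 22.7 to 102, 96.7 and 109 CPM (log2 2.25 ± 0.12, adjusted p = 3.93e-12). Reads of the near-identical neighbours of the Clca cluster can be shared with it, so its value is uncertain. Ryr2, the calcium release channel of heart, went from 0.9496, 0.524 and 0.662 to 2.37, 2.77 and 2.92 CPM (log2 1.81 ± 0.25, adjusted p = 1.44e-05), and Scn7a, a sodium channel, from 1.85, 1.88 and 1.98 to 4.74, 4.34 and 4.51 CPM (log2 1.22 ± 0.21, adjusted p = 0.000225). Atp1b1 (ENSMUSG00000026576, chromosome 1, 164437109 to 164458355), the beta subunit of the sodium pump, rose from 56.4, 56.5 and 54.5 to 117, 114 and 122 CPM (log2 1.08 ± 0.05, adjusted p = 1.05e-12). Stim1, which opens store-operated calcium entry, rose from 27.9, 30.0 and 30.7 to 50.2, 54.1 and 51.1 CPM (log2 0.81 ± 0.06, adjusted p = 1.06e-09). The mechanosensitive channel Piezo2 (ENSMUSG00000041482, chromosome 18, 63010213 to 63387183) fell from 129, 129 and 127 to 61.1, 59.1 and 56.3 CPM (log2 -1.12 ± 0.11, adjusted p = 5.9e-08). The connexin genes Gjb2 and Gja1 fell, Gjb2 from 67.3, 63.3 and 59.8 to 29.5, 29.6 and 24.7 CPM (log2 -1.18 ± 0.07, adjusted p = 2.14e-11) and Gja1 from 249, 246 and 247 to 165, 160.3 and 161 CPM (log2 -0.61 ± 0.04, adjusted p = 1.93e-10). The potassium channel Kcnh1 rose (log2 1.15 ± 0.28, adjusted p = 0.00632). The call of Kcnh1 was lost without vehicle replicate 3 (adjusted p = 0.0519).

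Cyclic nucleotide signalling genes fell in 11 and rose in 5 of 44 cases, 36.4% called against 13.2% of all genes. Adcy5 (ENSMUSG00000022840, chromosome 16, 35154877 to 35305738), an adenylyl cyclase, went from 2.42, 2.84 and 2.94 to 14.8, 12.9 and 10.9 CPM (log2 2.20 ± 0.15, adjusted p = 3.19e-10), and Adcy1 went from 9.88, 9.04 and 10.2 to 22.8, 19.99 and 21.5 CPM (log2 1.14 ± 0.10, adjusted p = 1.38e-08). Pde4b (ENSMUSG00000028525, chromosome 4, 102087543 to 102607259), which degrades cAMP, fell from 19.9, 20.8 and 20.8 to 6.91, 6.98 and 8.35 CPM (log2 -1.47 ± 0.09, adjusted p = 7.85e-11), and Pde8b fell (log2 -0.83 ± 0.09, adjusted p = 2.37e-07). Pde5a, which degrades cGMP, rose from 24.3, 23.4 and 25.9 to 44.8, 44.8 and 44.1 CPM (log2 0.86 ± 0.12, adjusted p = 9.14e-06). The scaffold Akap12 rose (log2 0.73 ± 0.07, adjusted p = 1.1e-07). G protein-coupled receptors fell in 14 and rose in 4 of 53 cases, 34.0% called against 13.2% of all genes. The cannabinoid receptor Cnr1 rose from 1.66, 2.14 and 2.19 to 4.94, 4.96 and 5.07 CPM (log2 1.28 ± 0.19, adjusted p = 3.62e-05) and the alpha-adrenergic receptor Adra1b from 4.32, 4.72 and 4.18 to 9.85, 9.54 and 8.87 CPM (log2 1.08 ± 0.12, adjusted p = 5.06e-07). The G protein-coupled estrogen receptor Gper1 fell from 3.09, 2.79 and 2.61 to 1.09, 1.07 and 1.64 CPM (log2 -1.13 ± 0.16, adjusted p = 1.56e-05), and P2ry14 (log2 -1.19 ± 0.33, adjusted p = 0.0158) and the protease-activated receptor F2rl2 (log2 -0.997 ± 0.31, adjusted p = 0.0317) fell. The call of P2ry14 was lost without vehicle replicate 1 or 3 or Dex replicate 1 (adjusted p = 0.0602 to 0.118), and also with no filter on low counts (adjusted p = 0.0684) and in DESeq2 (adjusted p = 0.0757). The call of F2rl2 was lost without vehicle replicate 1 or 2 or Dex replicate 1, 2 or 3 (adjusted p = 0.0619 to 0.136), and also with no filter on low counts (adjusted p = 0.0631) and in DESeq2 (adjusted p = 0.0569). Rgs2, which turns Gq signals off, rose from 10.97, 9.78 and 10.3 to 22.6, 20.1 and 22.1 CPM (log2 1.06 ± 0.10, adjusted p = 4.22e-08), while Rgs4 (log2 -0.34 ± 0.07, adjusted p = 0.00114), Rgs5 (log2 -0.42 ± 0.07, adjusted p = 0.000212) and Rgs16 (log2 -0.37 ± 0.04, adjusted p = 7.99e-07) fell.

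The factors of the hypoxia response Hif3a and Epas1 rose. Beside Hif3a, Epas1 (ENSMUSG00000024140, chromosome 17, 86753700 to 86833410), HIF-2 alpha, went from 13.2, 12.7 and 12.7 to 33.6, 32.4 and 32.0 CPM (log2 1.34 ± 0.11, adjusted p = 5.28e-09). The targets of these factors did not share a sign. Adm, adrenomedullin, rose from 36.0, 35.7 and 39.2 to 69.9, 77.2 and 71.5 CPM (log2 0.98 ± 0.08, adjusted p = 7.79e-09) and Bnip3 rose (log2 0.67 ± 0.07, adjusted p = 4.46e-07), while Stc1, stanniocalcin, fell from 5.79, 6.90 and 5.09 to 2.81, 2.89 and 2.51 CPM (log2 -1.09 ± 0.14, adjusted p = 7.47e-06) and Vegfa fell, as given above. In the list 8 of 29 rose and 2 fell, or 5 and 3 with scaling by library totals alone. Krueppel-like and C/EBP factors rose in 7 of 19 cases and fell in 1. Klf9 (ENSMUSG00000033863, chromosome 19, 23141226 to 23168134) went from 37.4, 37.1 and 37.3 to 79.99, 76.2 and 73.9 CPM (log2 1.04 ± 0.09, adjusted p = 1.09e-08), Klf5 rose (log2 0.79 ± 0.11, adjusted p = 2.53e-05), Klf13 rose (log2 0.71 ± 0.07, adjusted p = 2.07e-07), and Klf15 (log2 2.44), Cebpd (log2 1.07) and Cebpa (log2 0.53) rose. Among nuclear receptors Thrb, the beta thyroid hormone receptor, went from 2.04, 1.31 and 1.57 to 5.47, 4.54 and 5.38 CPM (log2 1.60 ± 0.24, adjusted p = 3.46e-05). The other large changes of that list were falls of Nr1d1 (log2 -1.59), Nr1d2 (log2 -1.30), Esr1 (log2 -1.49), Pgr (log2 -0.87) and Esrrg (log2 -0.78). The call of Pgr was lost without Dex replicate 2 (adjusted p = 0.0754). The call of Esrrg was lost without vehicle replicate 1 or Dex replicate 2 (adjusted p = 0.0896 and 0.0689). Tead4, a partner of YAP, rose from 7.64, 7.29 and 9.39 to 19.4, 20.2 and 21.8 CPM (log2 1.32 ± 0.10, adjusted p = 1.06e-09), the largest change in a list of SRF and YAP targets with 10 higher and 3 lower of 36.

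Genes of replication and mitosis were called at few points. Of 40 replication and mitosis genes 2 rose and 2 fell, 10% against 13.2% of all genes, and scaling by library totals alone gave 0 higher and 5 lower. In a list of cell cycle entry and its brakes 7 of 33 rose and 3 fell (30.3%), or 7 and 5 with scaling by library totals alone. The cyclin D genes Ccnd1 (log2 0.33 ± 0.05, adjusted p = 0.000126) and Ccnd3 (log2 0.51 ± 0.10, adjusted p = 0.000509) rose, and Btg1, an antiproliferative gene, fell (log2 -0.41 ± 0.06, adjusted p = 9.6e-06). Cdkn1c (ENSMUSG00000037664, chromosome 7, 143458339 to 143461050), the cyclin-dependent kinase inhibitor p57, went from 32.6, 30.1 and 34.1 to 71.3, 64.2 and 64.8 CPM (log2 1.05 ± 0.15, adjusted p = 2.73e-05). Cdkn1a, which encodes p21, was not called, at 452, 454 and 455 CPM with vehicle and 446, 452 and 449.7 CPM with Dex. The mitotic kinase Wee1 rose (log2 1.00 ± 0.07, adjusted p = 3.05e-10), Mycn fell (log2 -1.18 ± 0.29, adjusted p = 0.00779), and Gas2, a growth-arrest gene, fell (log2 -1.04 ± 0.06, adjusted p = 1.59e-11). The call of Mycn was lost without vehicle replicate 1 or Dex replicate 2 (adjusted p = 0.0523 and 0.0567). In the BCL2 family the survival genes moved oppositely: Bcl2l1 (ENSMUSG00000007659, chromosome 2, 152780668 to 152831728), BCL-XL, rose from 84.8, 85.9 and 82.3 to 158, 162 and 154 CPM (log2 0.90 ± 0.07, adjusted p = 1.59e-09), and Bcl2 fell from 16.9, 16.5 and 17.9 to 9.85, 9.99 and 10.1 CPM (log2 -0.77 ± 0.09, adjusted p = 2.36e-06). Dapk2 (log2 -1.56 ± 0.39, adjusted p = 0.00848) fell and Pmaip1 (log2 0.60 ± 0.05, adjusted p = 1.6e-08) rose. The small heat shock genes Hspb1 and Cryab rose, Hspb1 from 78.5, 80.6 and 81.5 to 179, 186 and 171 CPM (log2 1.15 ± 0.13, adjusted p = 1.06e-06) and Cryab from 85.7, 85.7 and 88.6 to 188, 184 and 193 CPM (log2 1.12 ± 0.07, adjusted p = 8.32e-11). Of 25 cytosolic chaperone genes 5 rose and 0 fell, or 4 and 2 with scaling by library totals alone. The share called in the main fit was 20%, against 13.2% of all genes.

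Several large families had few called members or none. No gene of 30 in ribosome biogenesis, 35 in the respiratory chain, 87 cytosolic ribosomal proteins, 48 proteasome subunits or 17 histones was called by edgeR in the fit of all 24 libraries at an adjusted p below 0.05. At an unadjusted p below 0.05 the numbers were 0, 0, 0, 1 and 1, and DESeq2 called 0, 0, 0, 1 and 0. The fit of only the 6 compared libraries called 1, 6, 17, 3 and 1 higher and 1, 0, 0, 3 and 0 lower. The absence of calls among respiratory chain genes and cytosolic ribosomal proteins thus depends on the libraries in the fit. Among 77 mitochondrial ribosomal proteins 1 was called, Mrps6 (log2 -0.29 ± 0.08, adjusted p = 0.0164). The call of Mrps6 was lost without vehicle replicate 1 or 2 or Dex replicate 1 or 2 (adjusted p = 0.0512 to 0.0729). Of 350 zinc finger genes with a Zfp symbol 15 were called (4.29%), 9 higher and 6 lower, or 8 and 14 with scaling by library totals alone.

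**Figure D4:**
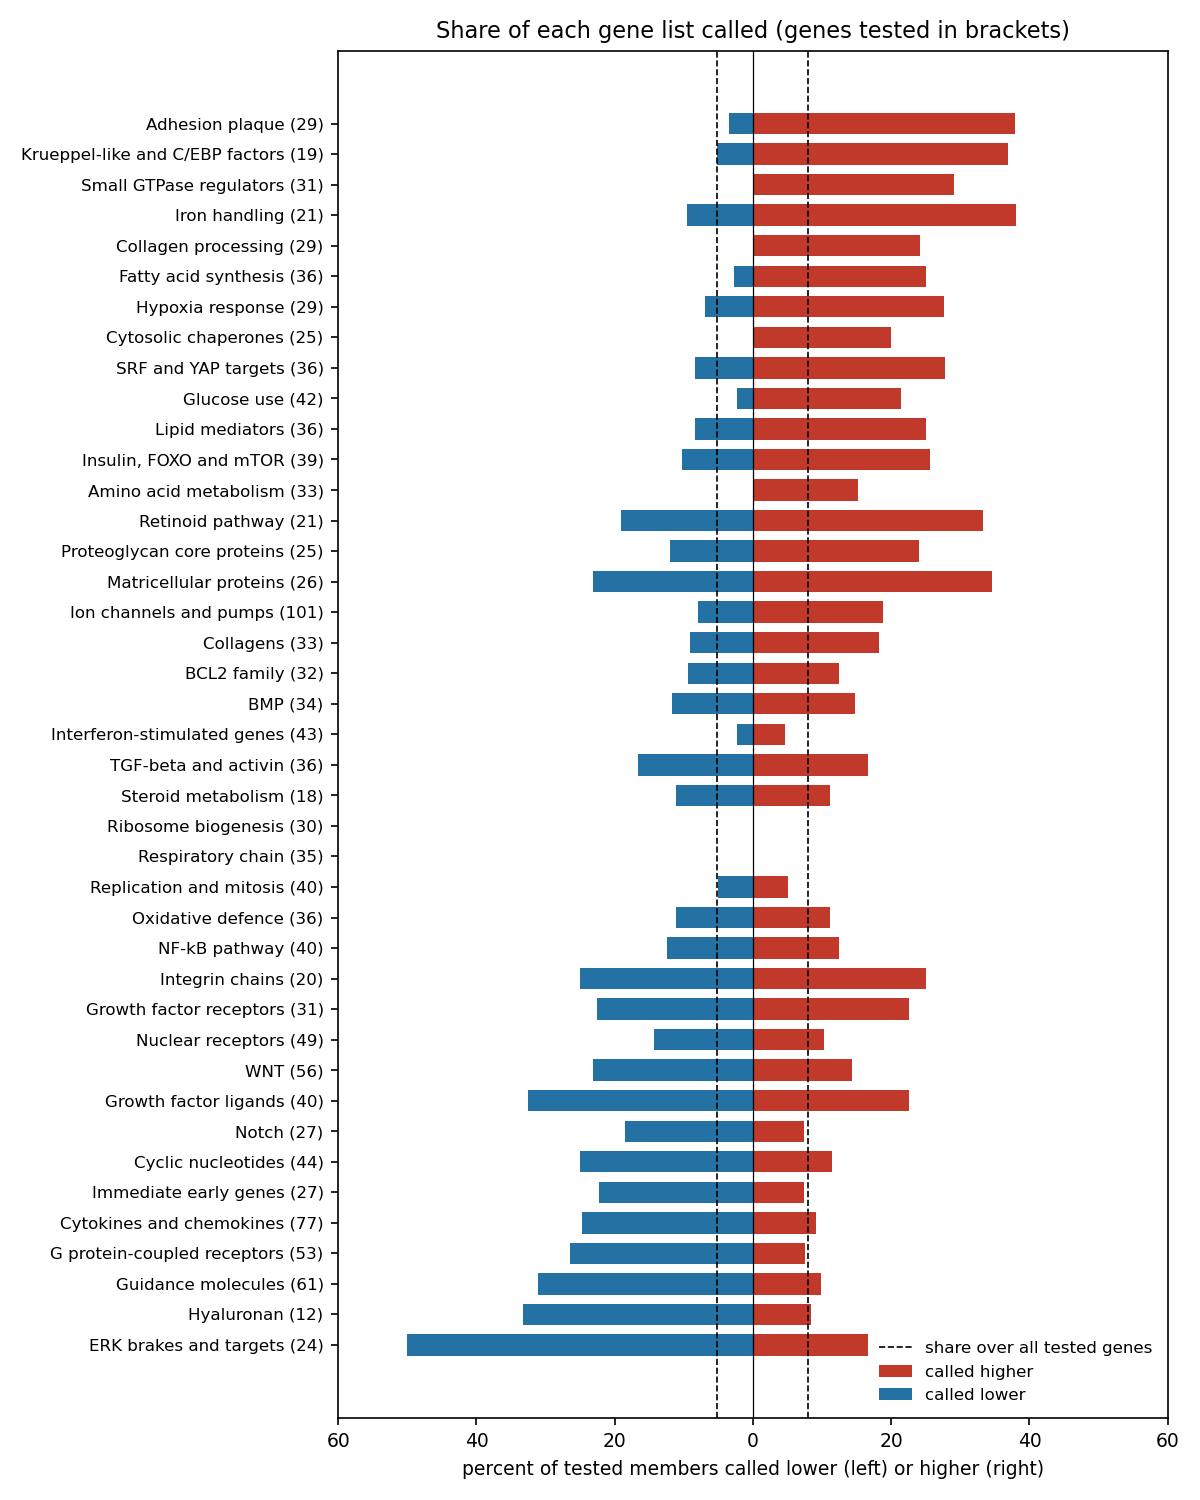
Percent of the tested members of each gene list called higher (right) or lower (left) with Dex, for the lists described in the text. The dashed lines mark the share over all tested genes, 7.92% higher and 5.24% lower. The ERK brakes and targets extend furthest to the left, at 50%, and iron handling furthest to the right, at 38.1%, and no bar is seen for ribosome biogenesis and the respiratory chain.

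Of 816 long non-coding genes 50 were called, which is 6.13%. The 5 with the largest changes were Gm27252, E230001N04Rik, Gm5532, Ptgs2os2 and Gm13415. Gm27252 (ENSMUSG00000098708, chromosome 7, 63896533 to 63899698) went from 0.0475, 0.0437 and 0.0827 to 1.25, 1.28 and 1.18 CPM (log2 3.27 ± 0.30, adjusted p = 3.77e-08). It lies within Klf13 on the opposite strand, and Klf13 went from 65.6, 62.1 and 62.9 to 105, 107 and 98.7 CPM. E230001N04Rik (ENSMUSG00000066170, chromosome 17, 28522720 to 28525398) went from 0.285, 0.175 and 0.207 to 1.13, 1.49 and 0.923 CPM (log2 2.08 ± 0.32, adjusted p = 4.57e-05) and lies 5193 bases from Fkbp5 on the opposite strand. Ptgs2os2 (ENSMUSG00000097754, chromosome 1, 150159043 to 150164948) went from 2.14, 1.40 and 1.57 to 0.884, 0.454 and 0.666 CPM (log2 -1.24 ± 0.22, adjusted p = 0.000266) and lies 50816 bases from Ptgs2 on the opposite strand. Gm5532 (log2 2.07 ± 0.38, adjusted p = 0.000447) and Gm13415 (log2 1.23 ± 0.27, adjusted p = 0.00278) rose. Between 2.75% and 2.81% of stranded reads lay on the strand opposite to the annotation, and the part of such reads in the value of Gm27252 was not tested. The fold change of Gm27252 was log2 3.27 and that of Klf13 log2 0.71.

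The same genes were examined under LPS and in the receptor mutant, whose libraries entered the fit and its estimate of the spread. Under LPS, 1149 of the 1205 higher genes had the same sign (95.3%) and 896 were called in that direction, where 10.5% of all genes were called higher. Of the 798 lower genes 757 had the same sign and 540 were called lower, where 10.6% of all genes were. Only 17 higher and 3 lower genes were called in the opposite direction. In the receptor mutant edgeR called no gene for Dex at an adjusted p below 0.05, with 1109 at an unadjusted p below 0.05, and DESeq2 called 3. Without the 5 libraries that stood apart edgeR called 5. The difference of the Dex effect between the genotypes was called for 1064 genes (6.99%). Without the 5 libraries that stood apart the genotype difference was called for 2191 genes. Vehicle levels of some genes also differed between the genotypes, which was not tested. Cldn4 was at 3.47, 3.71 and 4.22 CPM in wild type and 0.0530, 0.0951 and 0.169 CPM in the mutant. A fall of such a gene could hardly be seen in the mutant. For Has2 the vehicle levels were similar, at 88.8, 87.9 and 83.9 and 96.0, 85.2 and 87.3 CPM. Named genes with a called difference of WT minus mutant included Has2 (log2 -1.13 ± 0.12, adjusted p = 5.1e-07), Gas6 (log2 1.16 ± 0.10, adjusted p = 5.42e-08), Thbd (log2 -1.47 ± 0.09, adjusted p = 3.34e-10), Glul (log2 1.48 ± 0.08, adjusted p = 3.1e-11), Vegfd (log2 1.85 ± 0.09, adjusted p = 2.32e-12), Piezo2 (log2 -1.16 ± 0.15, adjusted p = 1.15e-05) and Lims2 (log2 1.997 ± 0.24, adjusted p = 4.07e-06).

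The difference of the Dex effect with and without LPS was called for 238 genes (1.56%), and for 781 without the 5 libraries, of which 2 are wild type with Dex and LPS. Vegfc is an example in which the sign turned. It was at 44.1, 42.5 and 41.9 CPM with LPS and 38.1, 32.0 and 34.2 CPM with Dex and LPS, a log2 of -0.30 against 0.80 without LPS (difference of log2 1.10 ± 0.10, adjusted p = 6.16e-07). Errfi1 rose without LPS but was at 205, 221 and 204 and 206, 222 and 229 CPM in the LPS groups (difference of log2 0.86 ± 0.07, adjusted p = 1.33e-07). Nfkbia, whose transcription LPS itself switches on, was at 195, 194 and 195 and 203, 181 and 151 CPM there (difference of log2 0.79 ± 0.13, adjusted p = 0.00139). Other genes changed more under LPS: Cdo1 by log2 1.43 (difference of log2 -0.43 ± 0.08, adjusted p = 0.00241) and Vegfa by -0.90 (difference of log2 0.45 ± 0.07, adjusted p = 0.0011). Slc15a3 fell by less (difference of log2 -1.57 ± 0.29, adjusted p = 0.00313), and Tgfbr3 rose by less (difference of log2 0.75 ± 0.13, adjusted p = 0.00243). These genes were named after the values of the difference were seen.

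**Figure D5:**
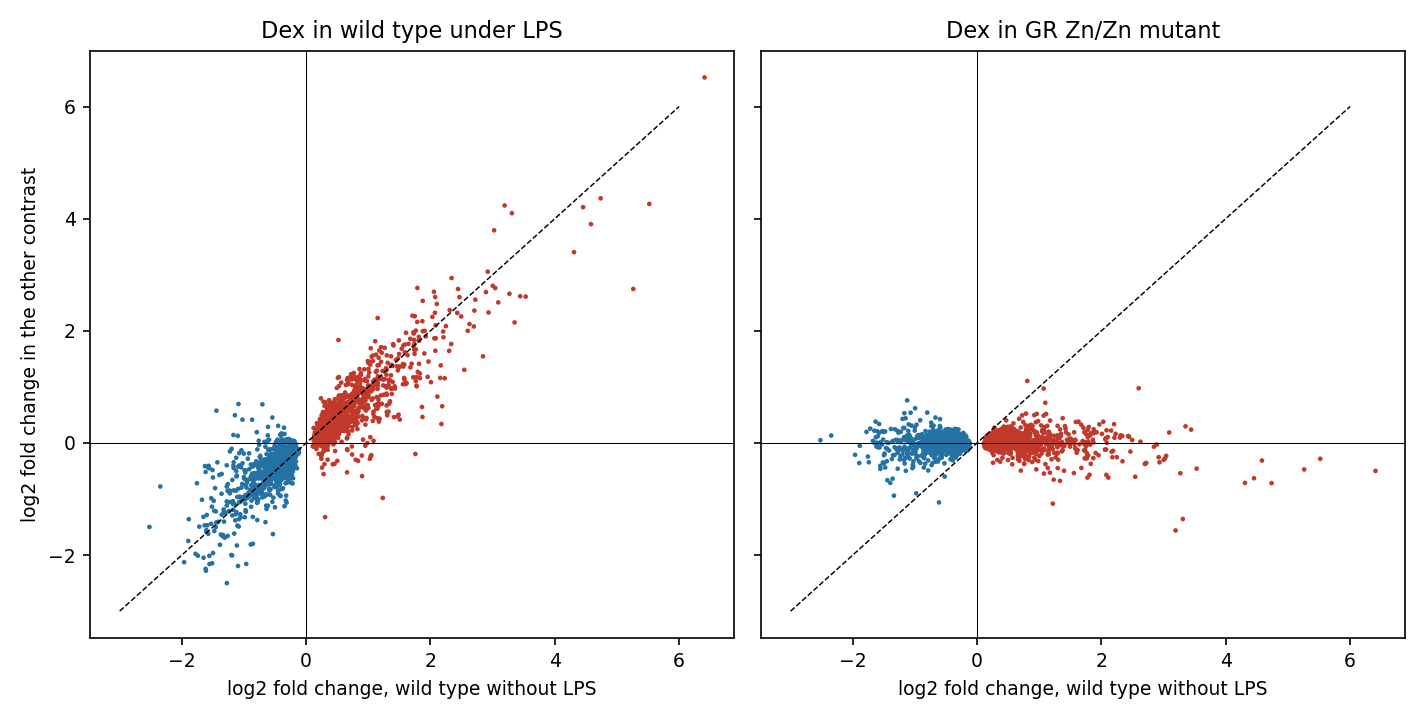
Log2 fold change with Dex in wild type without LPS (x axis) against that in wild type under LPS (left panel) and in the GR Zn/Zn mutant (right panel) for the 2003 called genes. Points follow the diagonal in the left panel, with medians of 0.41 and -0.41 for higher and lower genes, and the horizontal line at 0 in the right panel, with medians of 0.01 and -0.02.

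The authors' deposited table of this comparison holds 12588 genes. It gives 1122 genes higher and 766 lower at an adjusted p below 0.05 in the authors' deposited table. Of the 1850 genes called here that the authors' deposited table holds, 1757 were called there in the same direction and 0 in the opposite direction.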

How the data were processed

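RNA of 24 cultures was sequenced with a stranded mRNA library kit, per the labels. The authors used STAR 2.4.2a and mm10, per the submitters' processing notes, and deposited raw counts per gene, of which the reverse-strand column was used. Entries that name no gene were left out: unmapped reads took 4.49% to 5.16%, multimapping reads 4.85% to 5.19%, reads in no feature 3.64% to 4.19% and ambiguous reads 1.18% to 1.22% of the 6 libraries. The authors' deposited table of this comparison gives log2 fold changes and adjusted p-values. A further 96 columns of per-sample values were not used here.

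Genes passing filterByExpr were tested in edgeR 4.0.16 (R 4.3.3) with TMM scaling, a robust quasi-likelihood fit over all 8 groups and a prior count of 2, and p-values were adjusted by Benjamini-Hochberg. The fit was tested on simulated counts. Alternatives were DESeq2 1.42.0, other scalings, filters and strand columns, GC offsets, a replicate block and fewer libraries. Positions are from GENCODE vM21 on mm10. No pair of replicates agreed within sampling noise.

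The comparison, gene lists and tests were chosen with earlier results of these data known, and which lists to describe with their counts known. Named are the 4 response genes, up to 6 called members of each list with the largest changes, the 20 largest rises and falls among called genes at 1 CPM or more whose groups did not overlap, 5 long non-coding genes by the same rule, and uncalled members given by their values only. Outside this rule, Hbegf, Vegfc, Pdgfra, Pdgfrb, Spry1, Spry2, Spry4, Spred1, Spred3, Rasa1, Rasl11b, Egr1, Il6st, Csf1r, Ptprc, Anxa1, the markers Acan, Col9a1 and Ibsp, and holders of promoter motifs were named after their values were seen. The same holds for the adipocyte, epithelial, leukocyte, and cartilage and bone markers named singly. Some genes and 1 promoter site are not reported here.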

Additional observations from a re-analysis of the deposited data

Results flagged for a closer look

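The Dex effect differed between the genotypes for 1064 genes and differed with and without LPS in wild type for 238 genes, both by a contrast of contrasts in edgeR's quasi-likelihood fit at an adjusted p below 0.05. Differences are given on the log2 scale. For wild type minus mutant they were -1.13 for Has2, 1.16 for Gas6, -1.47 for Thbd, 1.48 for Glul, 1.85 for Vegfd, -1.16 for Piezo2 and 1.997 for Lims2. The other values are for the effect without LPS minus that with LPS.

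Among genes that rose without LPS the effect was the smaller under LPS for the signalling genes Tgfa (0.78), Errfi1 (0.86) and Tgfbr3 (0.75). The same held for Zfp36 (0.46) and Lbp (1.28), which act in the response to LPS, and for Fam107a (2.52), Epas1 (0.64), Gclc (0.41), Stim1 (0.42), Itga5 (0.30) and P4ha2 (0.23). For Vegfc (1.10) the sign turned, with a called fall under LPS (log2 -0.30, adjusted p = 0.00206 in edgeR's test). For Nfkbia (0.79) the difference was larger than the rise without LPS, so the estimate under LPS was negative. The rise was larger under LPS for Cdo1 (-0.43) and Rasl11b (-0.45).

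Among genes that fell without LPS, the effect under LPS was less negative for Slc15a3 (-1.57), Zcchc12 (-1.10) and Pde4b (-0.66). For Nrros (-1.28) and Csf1r (-0.57) the difference was larger than the fall without LPS, so the estimate under LPS was positive. The fall was larger under LPS for Aldh1a3 (0.63), Vegfa (0.45), Hmox1 (0.45), Rgs16 (0.44) and Txnrd1 (0.26).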

How the results depend on the processing

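No setting tried turned the direction of any of the 282 named calls followed through the settings. A fit of only the 6 compared libraries called 4659 genes (2548 higher and 2111 lower), and a fit without the 5 libraries of other groups that stood apart called 4330 (2354 and 1976). Without those 5 libraries the genotype difference was called for 2191 genes and the LPS difference for 781. The cause was not tested. Leaving out 1 of the 6 libraries gave 1525 to 1627 genes called, 934 to 1033 higher and 563 to 602 lower, 867 to 890 for the genotype difference and 164 to 176 for the LPS difference, and between 14 and 20 of the 282 named calls were lost each time. Every other setting stayed within 1.5 times the counts reported, with 1974 genes called by DESeq2, 1675 with no filter on low counts, 1942 from unstranded counts and 2489 with offsets for GC content.

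Replicate numbers are shared between the groups, but the deviations of same-numbered libraries from their group means correlated at -0.0071, 0.043 and -0.039, so the numbers were not taken to pair the libraries. With the replicate number as a block 1942 genes were called (1177 higher and 765 lower), 1015 for the genotype difference and 225 for the LPS difference, and with GC offsets and the block together 2417. Among the named genes the block ended the call of Star (adjusted p = 0.0637, and 0.0518 with GC offsets as well). Depth limits genes below about 1 CPM, where few reads per library set the spread.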

Other observations

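Cell-cell adhesion genes, a list of cadherins, protocadherins and junction proteins, were called in 19 of 53 cases, 12 higher and 7 lower, with 13.2% of all genes for comparison. Cdh2, N-cadherin, the chief classical cadherin of fibroblasts, rose from 171, 165 and 167 to 279.9, 278 and 279 CPM (log2 0.73 ± 0.07, adjusted p = 5.88e-08), and Cdh6 rose from 6.69, 7.29 and 7.73 to 21.5, 21.8 and 21.2 CPM (log2 1.56 ± 0.17, adjusted p = 3.77e-07). The protocadherins Pcdh17 (log2 1.49) and Pcdh9 (log2 0.80) rose, while Cdh10 fell from 45.0, 46.3 and 40.8 to 24.7, 25.3 and 26.7 CPM (log2 -0.79 ± 0.08, adjusted p = 2.89e-07) and the desmosomal plakophilin Pkp1 fell (log2 -1.32 ± 0.19, adjusted p = 2.35e-05).

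Igfbp5, a secreted binding protein of insulin-like growth factors, fell from 615, 581 and 585 to 368, 344 and 331 CPM (log2 -0.77 ± 0.08, adjusted p = 3.29e-07). Of 246 solute carrier genes 25 rose and 17 fell, 17.1% against 13.2% of all genes. Beside those already described, Slc45a3 rose from 2.04, 2.01 and 2.19 to 10.97, 10.7 and 10.7 CPM (log2 2.33 ± 0.16, adjusted p = 3.9e-10), and Slc5a3, the inositol transporter, fell from 95.7, 88.2 and 91.9 to 49.4, 47.5 and 52.8 CPM (log2 -0.88 ± 0.12, adjusted p = 1.5e-05). In each of these genes with values the 3 Dex libraries lay apart from the 3 vehicle libraries.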
